A study of Homo sapiens with 12 samples.

Results

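The difference in H-Ras response between 2 p53 backgrounds was examined gene by gene in MCF10A cells. For each gene, the log2 ratio of H-Ras to vector in the p53-deleted lines was taken and the same log2 ratio in the p53 wild-type lines was subtracted from it, after 1 was added to each group mean. Genes with a mean of at least 10 in any of the 4 groups entered, which gave 13434 of 62082 genes. A positive difference therefore means a higher response to H-Ras in the p53-deleted lines. Of these genes, 13396 could be tested over single libraries, and 1276 of them had a mean under 5 in some group and are described apart.

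MCF10A is an established line of human breast epithelial cells that does not form tumours. The 4 groups held 3 libraries each. The p53-deleted H-Ras line carries a deletion targeted to exon 2 of p53 and stably expresses the H-Ras mutant H-RasV12 from a pBabepuro retrovirus, and its control, the p53-deleted vector line, carries the same deletion and the empty pBabepuro retrovirus. The other two lines, p53 wild-type H-Ras and p53 wild-type vector, have intact p53 and were given these same constructs. Each H-Ras line was set against the vector line made with it at the same time. Every group is a single line, so p53 status and the pair of lines cannot be told apart, and nothing in the labels says that replicates were separate cultures. The p-values then rest on the spread among these libraries, and that spread may be technical.

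H-Ras is a small GTPase that passes growth factor signals to the RAF, MEK and ERK kinases and to PI3 kinase, and the V12 mutant stays in its active, GTP-bound state. p53 is a transcription factor that is activated by stress, including oncogene signalling, and that induces genes of growth arrest and cell death. In cultured epithelial cells, active Ras is known to promote cell proliferation, loss of cell junctions and the expression of secreted factors, and, in many normal cells, a p53-dependent arrest.

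Expression values are normalized counts, which are read counts divided by a size factor set within each background, so a response within a background is on 1 scale. Differences between backgrounds in level use size factors set over all 12 libraries, and this is said beside them. Where library values of both backgrounds are set side by side, each keeps its own scale, and the common scale would multiply them by 0.949 in p53-deleted H-Ras, 0.937 in p53-deleted vector, 1.06 in p53 wild-type H-Ras and 1.05 in p53 wild-type vector libraries. Estimated library totals ran from 7846958 to 10084898 reads. Within a group, library A had the highest size factor and library C the lowest. Levels carry the SD (n = 3 libraries) and log2 values the SE, and every adjusted p comes from limma with Benjamini-Hochberg adjustment over the 13396 genes. A gene was called at an adjusted p under 0.05. In the p53 wild-type lines, H-Ras library C and vector library A stand apart: their chi-square per degree of freedom against their own groups was 20.4 to 27.6. The remaining p53 wild-type pairs were at 2.40 and 4.05, and pairs within the p53-deleted groups were at 2.06 to 11.8.

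HRAS was the check of the introduced gene. It had 16475, 18269 and 18592 normalized counts in p53-deleted H-Ras, against 848, 793 and 878 in p53-deleted vector libraries. It had 18454, 17583 and 14809.5 in p53 wild-type H-Ras, against 717, 946 and 917 in p53 wild-type vector libraries. Its log2 response was 4.40 ± 0.12 in the p53-deleted lines (adjusted p = 3.6e-11) and 4.30 ± 0.12 in the p53 wild-type lines (adjusted p = 7.3e-11), and their difference of 0.10 ± 0.17 did not pass the test (adjusted p = 0.73). The introduced transcript and the endogenous gene cannot be told apart in these counts.

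Of 8 mammary epithelial markers, all were detected, and their summed means were 9455 normalized counts in p53-deleted H-Ras, against 60138 in p53-deleted vector cells, and 9981 in p53 wild-type H-Ras, against 48880 in p53 wild-type vector cells. Most of each sum was KRT5 and KRT8. KRT5 had deposited means of 3239 in p53-deleted H-Ras, against 45144 in p53-deleted vector, and 5245 in p53 wild-type H-Ras, against 34616 in p53 wild-type vector cells. KRT8 had 4853 in p53-deleted H-Ras, against 5086 in p53-deleted vector, and 3862 in p53 wild-type H-Ras, against 6411 in p53 wild-type vector cells. All 8 were thus present in the vector lines. KRT18 had 1208 in p53-deleted H-Ras, against 1763 in p53-deleted vector cells. It had 823 in p53 wild-type H-Ras, against 2370 in p53 wild-type vector cells. CDH1, TP63, KRT17 and KRT14 were low in both H-Ras lines. Their means were 39.3, 2.01, 4.96 and 0.964 normalized counts in p53-deleted H-Ras and 7.11, 1.97, 5.43 and 18.6 in p53 wild-type H-Ras cells.

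The 2 responses to H-Ras largely ran in the same direction. A response was called for 6178 genes in the p53-deleted lines (46.1% of those tested) and for 4904 genes in the p53 wild-type lines (36.6%). These counts rest on a spread shared by both backgrounds. With the responses fitted within each background alone, they were 7193 and 3301, and with a weight per library (array weights) 8323 and 8886. In the shared fit, of 3065 genes called in both, 2847 moved the same way, which is 92.9%, and 218 moved in opposite directions. The difference itself was called for 2308 genes, or 17.2% of those tested, of which 1245 (9.29%) had a higher and 1063 (7.94%) a lower response in the p53-deleted lines. The median difference over all genes was -0.01. Among called genes, 1302 had an absolute log2 difference of at least 1 and 514 of at least 2. Without p53-deleted H-Ras library C, 1520 genes were called for the difference.

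**Figure D1:**
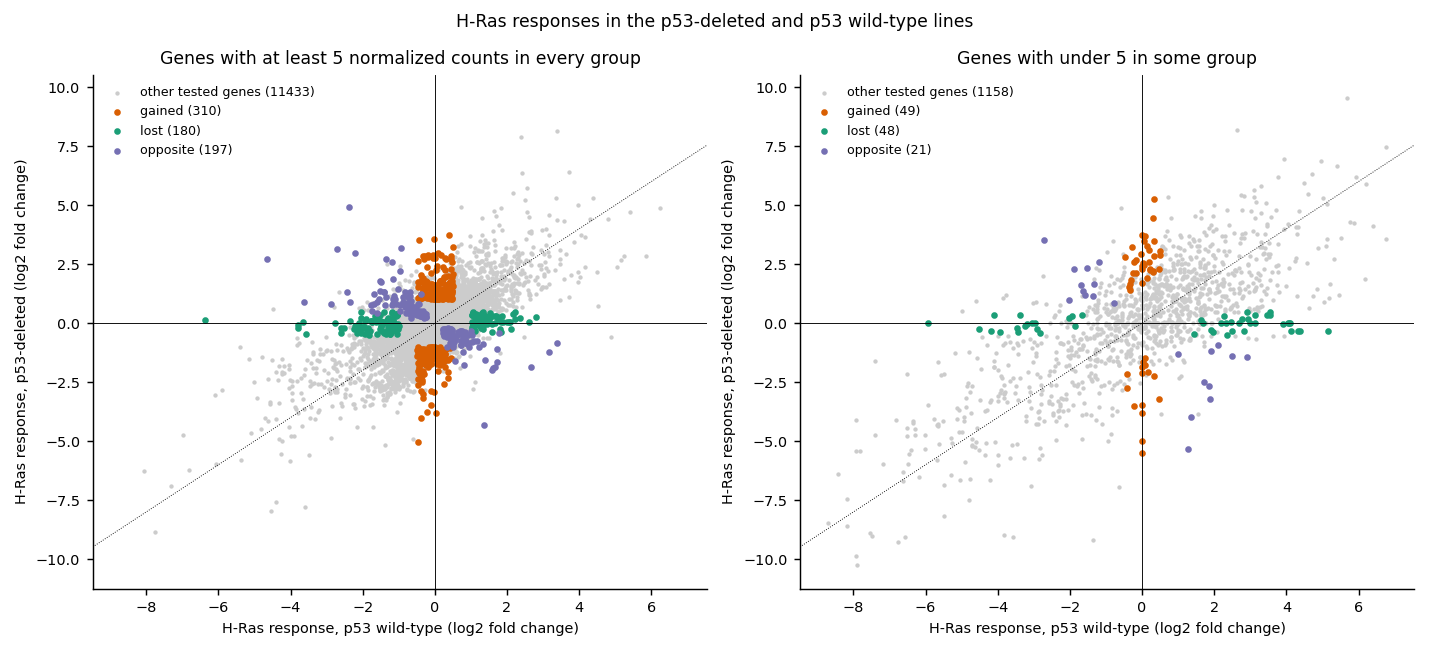
Log2 response to H-Ras in the p53-deleted lines (vertical axis) against the p53 wild-type lines (horizontal axis), 1 point per gene, for genes with at least 5 normalized counts in every group (left) and genes under 5 in some group (right). The dotted line marks equal responses. The 310 gained genes lie along the vertical axis, the 180 lost genes along the horizontal axis, and the 197 opposite genes in the upper left and lower right.

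Called genes were sorted into classes. A response was opposite when it was called in both backgrounds with opposite sign. It was lost when the p53 wild-type response was called with an absolute log2 of at least 1 and the p53-deleted response was under 0.5 in absolute log2, and gained when the reverse held. These names set the p53-deleted lines against the p53 wild-type lines and say nothing of the order in which the lines were made. Because the classes were cut on the same responses that define them, their counts are descriptions. Among the 12120 genes with at least 5 normalized counts in every group, the difference was called for 16.3%, and 197 genes were opposite (1.63%), 180 were lost (1.49%) and 310 were gained (2.56%). Over all genes tested, gained responses made up 2.68%, lost ones 1.70% and opposite ones 1.63%. A further 335 genes moved the same way with a larger response in the p53-deleted lines, 263 moved the same way with a smaller one, and 696 fell in none of these classes. In bulk libraries, fewer cells with a transcript and less transcript per cell cannot be told apart.

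The opposite genes were divided almost evenly by direction. Of the 197, 94 rose with H-Ras in the p53-deleted lines and fell in the p53 wild-type lines, and 103 did the reverse. Most of these opposite responses were small on one side, since 29 of the 197 had an absolute log2 of at least 1 in both backgrounds. The number of opposite genes was 118 without p53-deleted H-Ras library C and 131 without p53 wild-type H-Ras library B. Whichever library was left out, 117 to 163 of the 197 kept this class. The difference stayed called for 194 to 197 of them. That follows in large part from the class, since the responses of opposite sign add up in the difference. The genes named next are the 5 with the largest difference in each direction among those with a mean of at least 100 in the highest group, a rule also used for the other classes.

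Promoter sequence is shown for the first 2 of these genes in each direction that have an entry in the RefSeq promoter table (GRCh38.p14), as examples of large opposite responses. Having an entry decided the choice, and 5 of the 10 genes have one. Each runs from 250 bases before to 50 bases after the gene's start, 5′ to 3′ on the gene's strand. Capitals mark 3 motifs searched on both strands: TGANTCA, bound by AP-1 factors, which act downstream of Ras; CAGGTG, an E-box bound by SNAI and ZEB factors; and TGACNNNGC, the core of the antioxidant element. Of 35116 promoters in the table, 7.71% hold TGANTCA, 20.6% hold CAGGTG and 13.3% hold TGACNNNGC. The CAMK2B sequence is chr7:44325545-44325844 on the minus strand, SULT1E1 is chr4:69860096-69860395 on the minus strand, KCNJ15 is chr21:38272258-38272557 on the plus strand, and SEMA7A is chr15:74433909-74434208 on the minus strand, the first of its 2 entries.
CAMK2B: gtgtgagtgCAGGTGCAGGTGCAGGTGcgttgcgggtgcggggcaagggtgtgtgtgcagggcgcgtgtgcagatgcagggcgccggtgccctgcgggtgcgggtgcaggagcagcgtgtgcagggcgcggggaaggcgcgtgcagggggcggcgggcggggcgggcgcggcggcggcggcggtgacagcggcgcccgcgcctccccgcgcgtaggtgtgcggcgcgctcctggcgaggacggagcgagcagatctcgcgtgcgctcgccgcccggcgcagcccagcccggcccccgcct
SULT1E1: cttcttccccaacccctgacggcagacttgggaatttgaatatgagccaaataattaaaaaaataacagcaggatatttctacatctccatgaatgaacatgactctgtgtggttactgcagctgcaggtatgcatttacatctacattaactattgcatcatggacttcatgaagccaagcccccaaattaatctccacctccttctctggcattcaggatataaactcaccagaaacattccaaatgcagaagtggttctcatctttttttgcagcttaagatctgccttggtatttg
KCNJ15: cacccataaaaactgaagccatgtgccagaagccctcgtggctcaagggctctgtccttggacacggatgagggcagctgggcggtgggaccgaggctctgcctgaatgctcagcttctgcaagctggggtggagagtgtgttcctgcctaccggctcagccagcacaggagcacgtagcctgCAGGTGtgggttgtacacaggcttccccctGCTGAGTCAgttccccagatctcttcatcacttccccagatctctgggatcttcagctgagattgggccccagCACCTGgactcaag
SEMA7A: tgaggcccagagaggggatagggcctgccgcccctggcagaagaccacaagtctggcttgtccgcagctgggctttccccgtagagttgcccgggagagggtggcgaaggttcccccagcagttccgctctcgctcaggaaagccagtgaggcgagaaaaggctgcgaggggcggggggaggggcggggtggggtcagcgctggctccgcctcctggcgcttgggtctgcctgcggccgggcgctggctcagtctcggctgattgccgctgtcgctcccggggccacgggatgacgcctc
The CAMK2B window holds 3 adjoining CAGGTG sites. The KCNJ15 window holds 2 CAGGTG sites and 1 TGANTCA site that overlaps the 1 TGACNNNGC site. These letters are not in the SULT1E1 and SEMA7A windows.

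The 5 genes with the largest rise in p53-deleted lines against a fall in p53 wild-type lines began with CAMK2B, the beta subunit of a calcium- and calmodulin-dependent kinase. CAMK2B had 166, 133 and 133 normalized counts in p53-deleted H-Ras, against 28.99, 14.7 and 20.97 in p53-deleted vector libraries. It had 14.3, 8.60 and 7.08 in p53 wild-type H-Ras, against 827, 157 and 139.8 in p53 wild-type vector libraries. The groups within each background did not overlap, and the p53 wild-type vector level was set mostly by library A, which stands apart. Its log2 response was 2.73 ± 0.54 in p53-deleted lines (adjusted p = 0.0013) and -4.64 ± 0.54 in p53 wild-type lines (adjusted p = 2.2e-05), a difference of 7.37 ± 0.76 (adjusted p = 6.5e-05). SYT12, a member of the synaptotagmin family of membrane trafficking proteins, had 745, 486 and 461 in p53-deleted H-Ras, against 24.2, 9.77 and 22.02 in p53-deleted vector libraries. It had 85.9, 72.6 and 14.2 in p53 wild-type H-Ras, against 468, 193 and 153 in p53 wild-type vector libraries. The p53-deleted H-Ras libraries were above all others except p53 wild-type vector library A, which overlapped them, and H-Ras library C was the lowest of the p53 wild-type H-Ras libraries. The responses were 4.90 ± 0.60 in p53-deleted lines and -2.39 ± 0.60 in p53 wild-type lines, and the difference was 7.30 ± 0.85 (adjusted p = 0.00015). With the responses fitted within each background alone, the p53 wild-type fall was not called (adjusted p = 0.055).

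ALDH3A1, an aldehyde dehydrogenase that oxidizes aldehydes of lipid peroxidation, had 193, 159 and 181 in p53-deleted H-Ras, against 18.4, 22.5 and 17.8 in p53-deleted vector libraries. It had 45.8, 44.9 and 21.2 in p53 wild-type H-Ras, against 304, 212 and 211 in p53 wild-type vector libraries. No library of an H-Ras group overlapped its vector group in either background, and the responses of 3.12 ± 0.27 in p53-deleted lines and -2.72 ± 0.27 in p53 wild-type lines differed by 5.85 ± 0.38 (adjusted p = 1.8e-06). SULT1E1, which sulfates and thereby inactivates estrogens, had 171, 305 and 310.3 in p53-deleted H-Ras, against 40.6, 26.4 and 28.3 in p53-deleted vector libraries. It had 10.5, 6.69 and 1.01 in p53 wild-type H-Ras, against 24.5, 24.2 and 26.8 in p53 wild-type vector libraries. Its vector lines were at overlapping values and its H-Ras lines were apart, and the p53 wild-type H-Ras level rested on 19 reads in all. The responses were 2.98 ± 0.50 in p53-deleted lines and -2.22 ± 0.50 in p53 wild-type lines, and the difference was 5.20 ± 0.70 (adjusted p = 0.00041). METTL7A, a methyltransferase-like protein of the endoplasmic reticulum and lipid droplets, had 127, 280.0 and 293 in p53-deleted H-Ras, against 20.3, 23.4 and 26.2 in p53-deleted vector libraries. It had 514, 498 and 355 in p53 wild-type H-Ras, against 1118, 739 and 759 in p53 wild-type vector libraries. Every p53 wild-type library was above every p53-deleted library, so the opposite responses brought the H-Ras lines closer together than the vector lines. The difference was 4.11 ± 0.40 (adjusted p = 4.4e-05). Its response in the p53 wild-type lines was -0.93 ± 0.29 (adjusted p = 0.023), a fall that was no longer called without p53 wild-type H-Ras library C (adjusted p = 0.055), without vector library A (0.07) or without both (0.13).

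**Figure D2:**
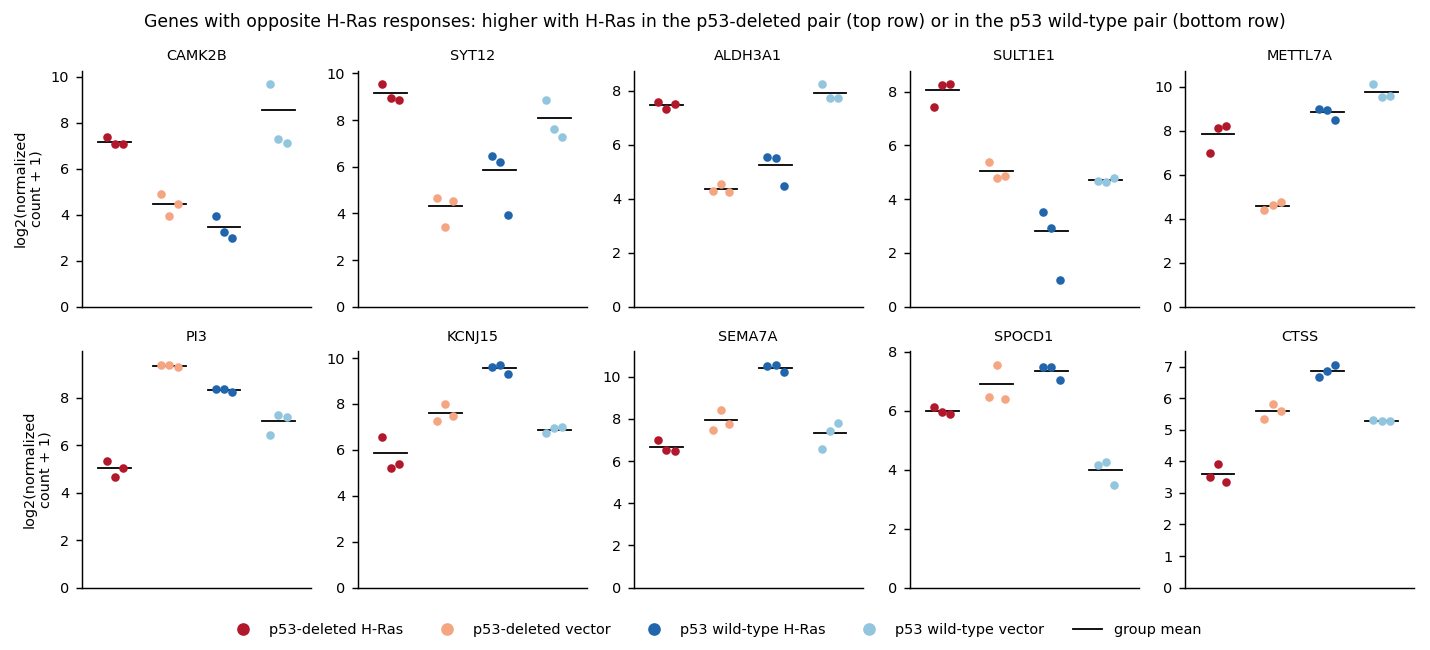
Single library values of the 10 opposite genes with the largest difference, as log2(normalized count + 1), with 3 points per group and a bar at the log2 of the group mean + 1; groups run from p53-deleted H-Ras and vector to p53 wild-type H-Ras and vector. In the top row p53-deleted H-Ras libraries lie above their vector libraries and p53 wild-type H-Ras libraries below theirs, and the bottom row shows the reverse.

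Among genes with the reverse pattern, PI3, the epithelial elastase inhibitor elafin, had 39.1, 24.3 and 31.96 normalized counts in p53-deleted H-Ras, against 668, 656 and 623 in p53-deleted vector libraries. It had 325, 329 and 304 in p53 wild-type H-Ras, against 85.00, 153 and 143 in p53 wild-type vector libraries. The groups did not overlap within either background, and spread within groups was small. The responses of -4.33 ± 0.21 in p53-deleted lines (adjusted p = 9e-09) and 1.37 ± 0.21 in p53 wild-type lines (adjusted p = 0.00025) differed by -5.70 ± 0.30 (adjusted p = 3.6e-07). KCNJ15, a subunit of inwardly rectifying potassium channels, had 94.02, 35.5 and 41.2 in p53-deleted H-Ras, against 152, 254 and 175 in p53-deleted vector libraries. It had 775, 834 and 629.9 in p53 wild-type H-Ras, against 105, 121 and 125 in p53 wild-type vector libraries. The p53-deleted H-Ras libraries were the lowest of the 12 and the p53 wild-type H-Ras libraries the highest, with a difference of -4.50 ± 0.42 (adjusted p = 3.3e-05). SEMA7A, a membrane-anchored semaphorin that binds integrins and plexins, had 127, 90.3 and 87.6 in p53-deleted H-Ras, against 179, 342 and 215 in p53-deleted vector libraries. It had 1441, 1514 and 1189 in p53 wild-type H-Ras, against 94.6, 172 and 220.3 in p53 wild-type vector libraries. Its vector libraries overlapped between the backgrounds. Its responses were -1.23 ± 0.29 in p53-deleted lines and 3.16 ± 0.29 in p53 wild-type lines, and the difference was -4.39 ± 0.41 (adjusted p = 3.3e-05).

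SPOCD1, known in mouse for DNA methylation of transposons in the male germ line, had 68.9, 60.9 and 57.7 in p53-deleted H-Ras, against 87.9, 187 and 83.9 in p53-deleted vector libraries. It had 176, 178 and 129 in p53 wild-type H-Ras, against 16.6, 17.9 and 10.1 in p53 wild-type vector libraries. The rise in p53 wild-type lines, 3.37 ± 0.30, was called whichever library was left out. Its fall in p53-deleted lines, -0.83 ± 0.30 (adjusted p = 0.038), was not called without p53-deleted H-Ras library A, B or C or without vector library B (adjusted p = 0.061 to 0.17), without a filter or with the responses fitted within each background (0.053 each). The difference of -4.20 ± 0.42 was called under every alternative run (adjusted p = 5.2e-05, 1e-07 to 0.00033 over the alternatives). CTSS, the lysosomal protease cathepsin S, had 10.2, 14.2 and 9.28 in p53-deleted H-Ras, against 39.6, 55.7 and 47.2 in p53-deleted vector libraries. It had 100.2, 116 and 132 in p53 wild-type H-Ras, against 38.6, 37.9 and 38.01 in p53 wild-type vector libraries. The groups did not overlap within either background, and the difference was -3.56 ± 0.29 (adjusted p = 1.3e-05).

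Opposite genes were also found among the gene lists, and 3 of them are given here. SNAI2, a zinc-finger repressor of epithelial genes, had 332, 226 and 256 in p53-deleted H-Ras, against 802, 887 and 729 in p53-deleted vector libraries. It had 985, 965 and 797 in p53 wild-type H-Ras, against 369, 349 and 329 in p53 wild-type vector libraries. Its responses were -1.58 ± 0.14 in p53-deleted lines and 1.39 ± 0.14 in p53 wild-type lines, and the groups did not overlap within either background. INHBA, the activin A subunit, had 318, 237 and 193 in p53-deleted H-Ras, against 916, 985 and 766 in p53-deleted vector libraries. It had 2852, 3133 and 1596 in p53 wild-type H-Ras, against 924, 783 and 633 in p53 wild-type vector libraries. Its vector lines were close and its p53 wild-type H-Ras libraries were the highest, with responses of -1.85 ± 0.24 in p53-deleted lines and 1.65 ± 0.24 in p53 wild-type lines and a difference of -3.50 ± 0.35 (adjusted p = 4.6e-05). HBEGF, a ligand of the EGF receptor, had 592, 329 and 353 in p53-deleted H-Ras, against 155, 213 and 198 in p53-deleted vector libraries. It had 426, 454 and 331 in p53 wild-type H-Ras, against 898, 654 and 686 in p53 wild-type vector libraries. Its H-Ras lines were alike in level and its vector lines were not, with responses of 1.13 ± 0.22 in p53-deleted lines and -0.88 ± 0.22 in p53 wild-type lines and a difference of 2.01 ± 0.31 (adjusted p = 0.00099).

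Responses seen in the p53 wild-type lines and lost in the p53-deleted lines numbered 180. Of these, 109 were falls and 71 were rises with H-Ras in the p53 wild-type lines. When no response was taken as under 0.25 in place of 0.5, 109 genes were lost, and when a response had to reach 2, 30 were. Without both p53 wild-type libraries that stand apart, 297 genes were lost.

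COBL, an actin nucleator, was the largest lost fall. It had 151, 212 and 185 normalized counts in p53-deleted H-Ras, against 177, 145 and 169 in p53-deleted vector libraries. It had 5.73, 10.5 and 4.04 in p53 wild-type H-Ras, against 689, 553 and 572 in p53 wild-type vector libraries. All 3 p53 wild-type H-Ras libraries were far below every other library, and the p53-deleted groups overlapped. Its p53-deleted response was 0.15 ± 0.25 (adjusted p = 0.65) and its p53 wild-type response -6.37 ± 0.25 (adjusted p = 1.3e-09), with a difference of 6.52 ± 0.36 (adjusted p = 5.1e-07). EYA2, a transcriptional coactivator with phosphatase activity, had 66.1, 65.9 and 74.2 in p53-deleted H-Ras, against 84.1, 55.7 and 80.7 in p53-deleted vector libraries. It had 17.2, 7.65 and 8.09 in p53 wild-type H-Ras, against 156, 158 and 154 in p53 wild-type vector libraries. The p53-deleted groups overlapped and the p53 wild-type groups did not, and the difference was 3.73 ± 0.37 (adjusted p = 5.1e-05). B4GALNT3, a glycosyltransferase of the Golgi, had 196, 162 and 182 in p53-deleted H-Ras, against 231, 171 and 224 in p53-deleted vector libraries. It had 14.3, 11.5 and 7.08 in p53 wild-type H-Ras, against 214, 145 and 129.7 in p53 wild-type vector libraries. Its p53 wild-type H-Ras libraries alone were low, and the difference was 3.59 ± 0.35 (adjusted p = 4.1e-05).

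ARVCF, a catenin of the p120 family that binds cadherin tails, had 109, 101 and 116 in p53-deleted H-Ras, against 132, 146 and 177 in p53-deleted vector libraries. It had 28.6, 16.2 and 13.1 in p53 wild-type H-Ras, against 319, 220.2 and 171 in p53 wild-type vector libraries. The p53-deleted H-Ras libraries were all below their vector libraries, by a log2 of -0.47 ± 0.27 that was not called, and this value passed 0.5 without p53-deleted H-Ras library C (-0.51) and without vector library A (-0.56). The difference was 3.11 ± 0.38 (adjusted p = 0.00022). LIMCH1, an actin- and myosin-binding protein, had 254, 284 and 270.1 in p53-deleted H-Ras, against 272, 219.8 and 315 in p53-deleted vector libraries. It had 21.96, 28.7 and 34.4 in p53 wild-type H-Ras, against 169, 229 and 193 in p53 wild-type vector libraries. Its p53-deleted means were equal within their spread, and the difference was 2.78 ± 0.26 (adjusted p = 3.2e-05). ITGB4, the beta subunit of the hemidesmosome integrin, was also lost, with 8505, 8283 and 8883 in p53-deleted H-Ras, against 10315, 8694 and 13852 in p53-deleted vector libraries. It had 3772, 3479.6 and 1805 in p53 wild-type H-Ras, against 13559.5, 9113 and 8166 in p53 wild-type vector libraries. Here the p53-deleted groups overlapped, and the responses were -0.33 ± 0.26 in p53-deleted lines and -1.80 ± 0.26 in p53 wild-type lines, with a difference of 1.47 ± 0.37 (adjusted p = 0.018).

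GPAM, the mitochondrial acyltransferase that starts triacylglycerol synthesis, was the largest lost rise. It had 138, 159 and 166 normalized counts in p53-deleted H-Ras, against 152, 166 and 136 in p53-deleted vector libraries. It had 819, 897 and 787 in p53 wild-type H-Ras, against 137, 129 and 146 in p53 wild-type vector libraries. The p53 wild-type H-Ras libraries stood alone and the other 9 libraries shared 1 range, so the p53 wild-type response of 2.60 ± 0.12 (adjusted p = 6e-09) faced 0.03 ± 0.12 in p53-deleted lines, a difference of -2.57 ± 0.17 (adjusted p = 2.1e-06). TNC, the matrix glycoprotein tenascin C, had 94.9, 129 and 148 in p53-deleted H-Ras, against 118, 192 and 135 in p53-deleted vector libraries. It had 2042, 2067 and 1908 in p53 wild-type H-Ras, against 546, 396 and 465 in p53 wild-type vector libraries. It was lower in both p53-deleted groups than in either p53 wild-type group, and the difference was -2.36 ± 0.27 (adjusted p = 0.00015). SLC26A2, a sulfate transporter, had 848, 975 and 979 in p53-deleted H-Ras, against 719.8, 1032 and 708 in p53-deleted vector libraries. It had 3056, 3061 and 3259 in p53 wild-type H-Ras, against 480.2, 679 and 692 in p53 wild-type vector libraries. Its p53-deleted groups overlapped, and the difference was -2.15 ± 0.23 (adjusted p = 7.4e-05).

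FRMD3 and FRMD4A, members of a family of FERM-domain proteins, completed the set. FRMD3 had 148, 161 and 174 in p53-deleted H-Ras, against 198, 195 and 177 in p53-deleted vector, and 270.2, 274 and 336 in p53 wild-type H-Ras, against 75.4, 91.7 and 83.9 in p53 wild-type vector libraries, and its difference was -2.03 ± 0.19 (adjusted p = 2.7e-05). With array weights its p53-deleted value of -0.25 was called (adjusted p = 0.032), an opposite response. FRMD4A had 5.59, 6.09 and 7.22 in p53-deleted H-Ras, against 8.70, 5.86 and 4.19 in p53-deleted vector, and 191, 179 and 135 in p53 wild-type H-Ras, against 44.7, 37.9 and 34.7 in p53 wild-type vector libraries, so that its p53-deleted levels rested on 19 reads in each group and its difference was -2.02 ± 0.37 (adjusted p = 0.003). SPRY2, a feedback inhibitor of receptor and Ras signalling, was lost as well. It had 357, 242 and 233 in p53-deleted H-Ras, against 239.6, 181 and 251 in p53-deleted vector, and 477, 571 and 293 in p53 wild-type H-Ras, against 149, 105 and 107 in p53 wild-type vector libraries, with responses of 0.30 ± 0.25 in p53-deleted lines (adjusted p = 0.35) and 1.85 ± 0.25 in p53 wild-type lines (adjusted p = 7.8e-05).

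Responses gained in the p53-deleted lines numbered 310, of which 134 fell and 176 rose with H-Ras in the p53-deleted lines. These were more than the 180 lost ones, but the order depended on the libraries. Without both p53 wild-type libraries that stand apart, 210 genes were gained and 297 lost, and with array weights 294 were gained and 351 lost. The other alternatives had more gained than lost genes. With no response taken as under 0.25, 153 were gained, and with a response of at least 2, 56 were. Without both p53 wild-type libraries that stand apart, 165 of the 310 kept this class and 265 stayed called for the difference.

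EHF, an ETS-family transcription factor of epithelia, had the largest gained fall. It had 14.9, 27.4 and 14.4 normalized counts in p53-deleted H-Ras, against 611, 630.1 and 645 in p53-deleted vector libraries. It had 1122, 1142 and 1077 in p53 wild-type H-Ras, against 1895, 1413 and 1355 in p53 wild-type vector libraries. The p53-deleted H-Ras libraries were far below all others, with a response of -5.04 ± 0.20 (adjusted p = 1.4e-09) against -0.46 ± 0.20 in p53 wild-type lines (adjusted p = 0.087) and a difference of -4.58 ± 0.28 (adjusted p = 1.3e-06). The p53 wild-type value was -0.53 without vector library B and -0.56 without vector library C, past the 0.5 that bounds the class.

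CPA4, a secreted carboxypeptidase, had 6.52, 16.2 and 9.28 in p53-deleted H-Ras, against 178, 179.7 and 181 in p53-deleted vector libraries. It had 22.9, 14.3 and 57.6 in p53 wild-type H-Ras, against 13.1, 52.7 and 62.6 in p53 wild-type vector libraries. H-Ras library C was the highest of the p53 wild-type H-Ras libraries and vector library A the lowest of the p53 wild-type vector libraries. The p53 wild-type response was -0.39 ± 0.56, but -0.93 without H-Ras library C, -1.07 without vector library A and -1.61 without both (adjusted p = 0.0012), so that CPA4 then fell in both backgrounds, and the difference stayed called in each case (adjusted p = 0.0097, 0.0086 and 0.0016). KRT121P, a keratin pseudogene whose reads may come from related keratins, had 56.8, 5.07 and 2.06 in p53-deleted H-Ras, against 112, 93.8 and 282 in p53-deleted vector libraries. It had 118, 114 and 35.4 in p53 wild-type H-Ras, against 103, 55.8 and 78.3 in p53 wild-type vector libraries. Its difference of -3.85 ± 1.21 (adjusted p = 0.046) was called with p53-deleted H-Ras library A or p53 wild-type H-Ras library C left out and with none of the other 10 libraries left out (adjusted p = 0.056 to 0.1), nor with no filter on low values (0.053).

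Among gained rises, IL24, a cytokine, had 254, 117 and 102 in p53-deleted H-Ras, against 9.66, 19.5 and 8.39 in p53-deleted vector libraries. It had 13.4, 34.4 and 3.03 in p53 wild-type H-Ras, against 14.02, 18.96 and 15.7 in p53 wild-type vector libraries. The p53-deleted groups did not overlap, and the p53 wild-type H-Ras libraries were widely spread. The difference was 3.95 ± 0.88 (adjusted p = 0.0098, 0.00013 to 0.028 over the alternatives), and the p53 wild-type value of -0.43 was -0.52 without H-Ras library A, -1.17 without H-Ras library B and -0.52 without vector library A, none of them called. ABCA3, a transporter of phospholipids, had 279, 201 and 242 in p53-deleted H-Ras, against 23.2, 7.81 and 37.7 in p53-deleted vector libraries. It had 22.9, 16.2 and 11.1 in p53 wild-type H-Ras, against 30.7, 11.6 and 12.3 in p53 wild-type vector libraries. The p53-deleted H-Ras libraries were above all others, and the difference was 3.60 ± 0.70 (adjusted p = 0.0044). Its p53 wild-type value was past the 0.5 that bounds the class with array weights (0.64) and without both libraries that stand apart (0.65), and was not called in either case. CYP4X1, a monooxygenase, had 240.2, 227 and 238 in p53-deleted H-Ras, against 22.2, 11.7 and 17.8 in p53-deleted vector libraries. It had 57.3, 59.3 and 34.4 in p53 wild-type H-Ras, against 63.97, 30.6 and 25.7 in p53 wild-type vector libraries. Its difference was 3.34 ± 0.47 (adjusted p = 0.00052), and its p53 wild-type response of 0.39 ± 0.33 was 1.03 without both libraries that stand apart (adjusted p = 0.004), so that CYP4X1 then rose in both backgrounds.

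CD70, a ligand of the tumour necrosis factor family, had 32.6, 46.7 and 63.9 in p53-deleted H-Ras, against 5.80, 4.88 and 6.29 in p53-deleted vector libraries. It had 983, 817 and 550.0 in p53 wild-type H-Ras, against 1396, 758 and 813 in p53 wild-type vector libraries. It stayed far below both p53 wild-type groups in spite of its rise of 2.83 ± 0.29 in p53-deleted lines (adjusted p = 7.2e-06). The difference was 3.15 ± 0.41 (adjusted p = 0.0003), and the p53 wild-type value was -0.50 without H-Ras library A. REEP2, a protein that shapes the endoplasmic reticulum, had 388, 263 and 263 in p53-deleted H-Ras, against 46.4, 30.3 and 47.2 in p53-deleted vector libraries. It had 31.5, 33.4 and 13.1 in p53 wild-type H-Ras, against 39.4, 24.2 and 25.7 in p53 wild-type vector libraries. Only the p53-deleted H-Ras libraries were high, with a difference of 3.12 ± 0.48 (adjusted p = 0.00096). TXNRD1, a thioredoxin reductase, was gained at a far higher level, with 11289, 10625 and 10428 in p53-deleted H-Ras, against 3256, 3605 and 3637 in p53-deleted vector libraries. It had 3609, 3723 and 3579 in p53 wild-type H-Ras, against 2702, 2994 and 3156 in p53 wild-type vector libraries. Its rise was called in both backgrounds, with 1.62 ± 0.08 in p53-deleted lines, against 0.30 ± 0.08 in p53 wild-type lines (adjusted p = 0.013). The p53 wild-type rise was under the 0.5 that bounds the class, and the difference was 1.32 ± 0.12 (adjusted p = 2.6e-05).

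**Figure D3:**
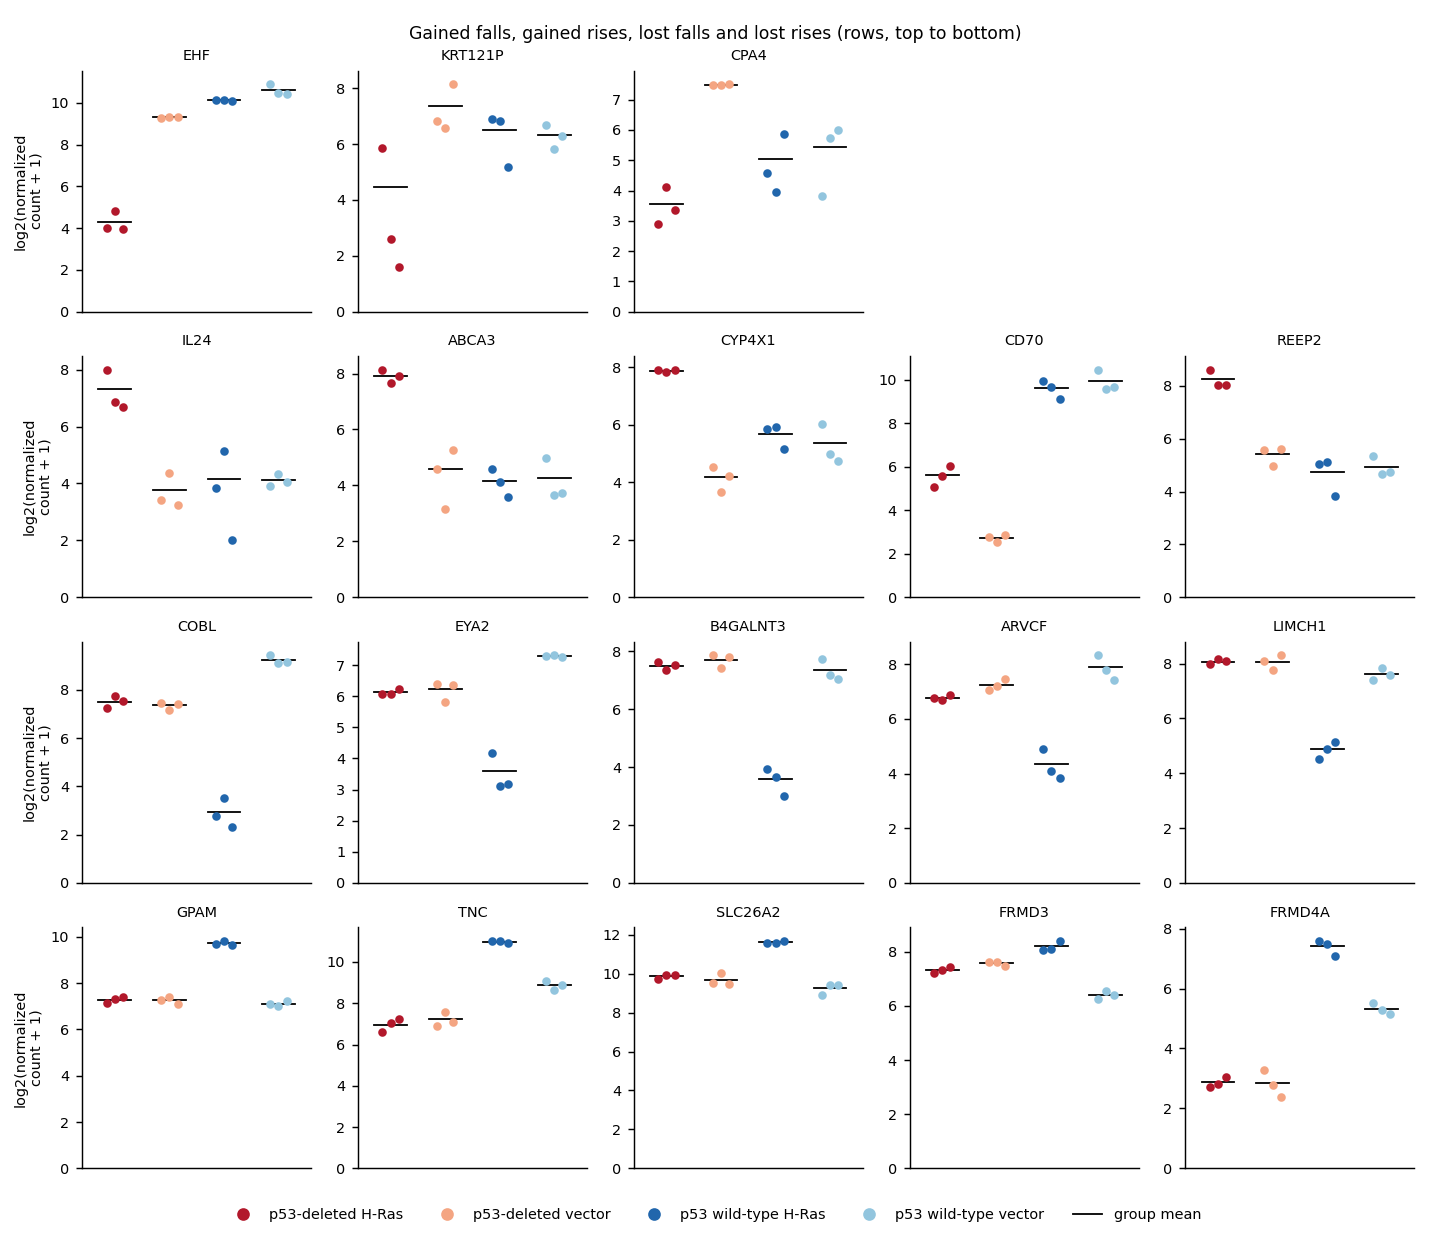
Single library values of 18 gained and lost genes as log2(normalized count + 1), with 3 points per group and a bar at the log2 of the group mean + 1. Rows from top to bottom show 3 gained falls, 5 gained rises, 5 lost falls and 5 lost rises; in the upper rows the p53-deleted H-Ras libraries stand alone within their background, and in the lower rows the p53 wild-type H-Ras libraries do.

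Of the 1276 genes with a mean under 5 in some group, 327 were called for the difference, or 25.6%. Such genes entered only with a mean of at least 10 in another group, so a difference between groups is built into them. This share therefore cannot be compared with the 16.3% of the genes with at least 5 in every group. On the log2(value + 1) scale, changes of such genes are understated, and in simulated data 25 of 31 unchanged genes that were called had a mean under 5, so these genes are given apart. Among them, 21 were opposite, 48 lost and 49 gained. SERPINB2, an inhibitor of plasminogen activators, had 1.86, 1.01 and 2.06 in p53-deleted H-Ras, against 94.7, 148 and 81.8 in p53-deleted vector libraries. It had 54.4, 64.99 and 49.5 in p53 wild-type H-Ras, against 11.4, 37.9 and 26.8 in p53 wild-type vector libraries. With 5 against 327 reads in p53-deleted lines, its vector level was 65.8 times its H-Ras level (95% interval 27.9 to 204, counting error only). Its rise in p53 wild-type lines, 1.26 ± 0.38, was not called without H-Ras library B (adjusted p = 0.073) or without vector library A (0.057), or with the responses fitted within each background (0.072), and the difference of -6.60 ± 0.54 was called under every alternative (adjusted p = 1.1e-05, 1.1e-08 to 0.00014).

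CD22, a sialic acid-binding lectin known from B cells, had 7.94 ± 1.17 in p53-deleted H-Ras, against 152 ± 69.8 in p53-deleted vector, and 6.78 ± 3.23 in p53 wild-type H-Ras, against 2.18 ± 1.90 in p53 wild-type vector, and its difference was -5.36 ± 0.64 (adjusted p = 0.00018). Its p53 wild-type rise was lost without H-Ras library A (adjusted p = 0.13) or vector library B or C (0.11 each), with a pseudocount of 5 (0.11), without a filter (0.065), with voom (0.25) and with the responses fitted within each background (0.088). GPAT2, a glycerol phosphate acyltransferase, had 195 ± 20.4 in p53-deleted H-Ras, against 448 ± 57.4 in p53-deleted vector, and 3.93 ± 2.08 in p53 wild-type H-Ras, against 0.292 ± 0.506 in p53 wild-type vector, with 12 reads against 1 in the p53 wild-type groups and a difference of -3.10 ± 0.47 (adjusted p = 0.00086). CDH11, a cadherin of mesenchymal cells, was a lost rise, with 0, 1.01 and 0 in p53-deleted H-Ras, against 0, 0 and 1.05 in p53-deleted vector libraries. It had 369, 373 and 306 in p53 wild-type H-Ras, against 21.03, 17.9 and 19.01 in p53 wild-type vector libraries. Each p53-deleted group held 1 read of it, and the p53 wild-type libraries alone carried a response, of 4.10 ± 0.36, with a difference of -4.11 ± 0.51 (adjusted p = 0.00022).

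ADAMTS12, a secreted metalloprotease, was likewise a lost rise, with 0, 0 and 0 in p53-deleted H-Ras, against 0.966, 0 and 0 in p53-deleted vector libraries. It had 223, 257 and 137 in p53 wild-type H-Ras, against 7.89, 14.8 and 10.1 in p53 wild-type vector libraries. Its difference was -4.44 ± 0.53 (adjusted p = 0.00017), over 0 and 1 reads in the p53-deleted groups. Its p53-deleted value passed 0.5 in size with a pseudocount of 0.5 (-0.52), with voom (-0.52) and with array weights (-0.68). CSF2, the growth factor GM-CSF, had 3.19 ± 2.92 in p53-deleted H-Ras, against 3.05 ± 2.14 in p53-deleted vector, and 159 ± 37.4 in p53 wild-type H-Ras, against 9.99 ± 4.00 in p53 wild-type vector, with a difference of -3.92 ± 0.72 (adjusted p = 0.0034). Its p53-deleted value was -0.55 without p53-deleted H-Ras library A, past the bound of the class. Of lost falls, GYLTL1B, a glycosyltransferase that modifies dystroglycan, had 103 ± 2.56 in p53-deleted H-Ras, against 114 ± 23.7 in p53-deleted vector, and 4.19 ± 1.01 in p53 wild-type H-Ras, against 48.2 ± 12.3 in p53 wild-type vector, TMEM63C, a membrane channel protein, had 102 ± 26.6 in p53-deleted H-Ras, against 119 ± 16.5 in p53-deleted vector, and 4.79 ± 3.28 in p53 wild-type H-Ras, against 36.03 ± 6.06 in p53 wild-type vector, and FEZ1, a kinesin adaptor, had 4.26 ± 3.05 in p53-deleted H-Ras, against 5.87 ± 4.35 in p53-deleted vector. It had 5.81 ± 1.80 in p53 wild-type H-Ras, against 106 ± 41.6 in p53 wild-type vector. Their differences were 3.11 ± 0.33 (adjusted p = 7.6e-05), 2.66 ± 0.61 (adjusted p = 0.011) and 3.54 ± 0.78 (adjusted p = 0.0091). For FEZ1 the p53-deleted value was past 0.5 without p53-deleted H-Ras library A or B or vector library C (-0.56 to -0.87). Its p53-deleted H-Ras and vector groups held 13 and 18 reads in all, so that a fall could hardly be seen there. KIF26A, a kinesin-family protein, was a gained fall with 44.2 ± 8.51 in p53-deleted H-Ras, against 154 ± 0.916 in p53-deleted vector. It had 3.24 ± 2.39 in p53 wild-type H-Ras, against 2.62 ± 0.773 in p53 wild-type vector, on 10 and 8 reads in all, so that a fall could hardly be seen there. Its difference of -1.87 ± 0.53 (adjusted p = 0.03) was called without any 1 of the p53 wild-type H-Ras libraries or p53 wild-type vector library A, and not without any of the other 8 libraries (adjusted p = 0.052 to 0.076), with a pseudocount of 0.5 (0.054), with no filter (0.062) or with voom (0.056).

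A difference in response can lie in the vector lines, in the H-Ras lines or in both. On size factors set over the 12 libraries, the H-Ras lines differed more between backgrounds than the vector lines did in 1292 of the 2308 called genes, and the vector lines differed more in 1016, or 44.0%, against 46.3% over all genes tested. The H-Ras lines were the more different in 126 of 218 opposite, 140 of 228 lost and 203 of 359 gained genes. Among called genes, the H-Ras lines were within a log2 of 0.5 of each other in 39.2% (all genes 61.7%) and the vector lines in 44.8% (65.6%). Lower shares are built into the call, and no share was tested.

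Single genes showed each pattern on that common scale. GPAM had a log2 difference (p53-deleted minus p53 wild-type) of -2.59 between the H-Ras lines and of -0.02 between the vector lines. COL17A1, a hemidesmosome collagen, was at -4.15 in the H-Ras lines and 0.04 in the vector lines. VIM, the mesenchymal intermediate filament vimentin, showed the converse, at -0.44 in the H-Ras lines and -4.41 in the vector lines. CD22, KRT13 and MUC1 likewise differed little in the H-Ras lines, with 0.13, 0.25 and -0.20, and more in the vector lines, with 5.49, 8.02 and -2.66. CAMK2B crossed over, with 3.62 in the H-Ras lines and -3.76 in the vector lines, as did SYT12 (3.43 and -3.87) and COBL (4.49 and -2.04). CD70 was lower in the p53-deleted lines throughout, with -4.18 in the H-Ras lines and -7.31 in the vector lines.

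**Figure D4:**
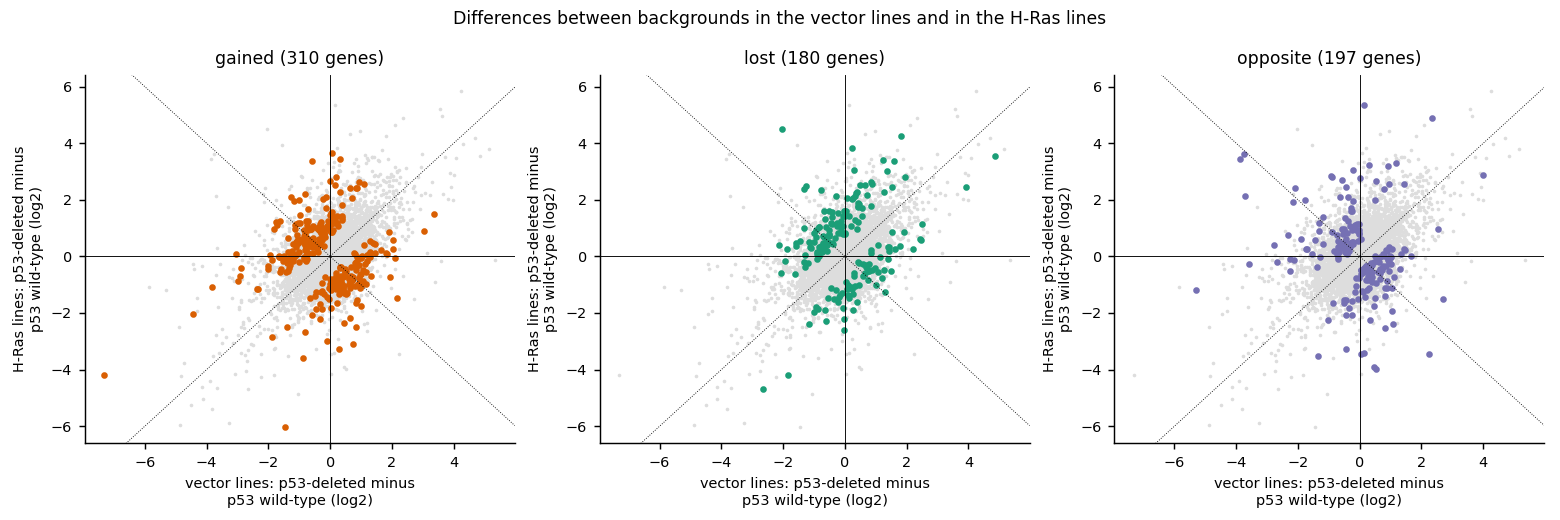
Differences between backgrounds (p53-deleted minus p53 wild-type, log2, size factors over 12 libraries) in the vector lines (horizontal axis) and in the H-Ras lines (vertical axis) for genes with at least 5 normalized counts in every group; grey points are all such genes and coloured points are the 310 gained, 180 lost and 197 opposite genes. Dotted lines mark differences of equal size, and coloured points lie both near the vertical axis, where the H-Ras lines alone differ, and near the horizontal axis, where the vector lines alone differ.

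Gene lists were then counted against the background of 9.29% of all tested genes with a higher and 7.94% with a lower response in p53-deleted lines. Counts of members that rose or fell have their own background. Of all genes tested, 22.8% rose and 23.3% fell in p53-deleted lines, and 18.2% rose and 18.4% fell in p53 wild-type lines. Members with a mean under 5 in some group are counted with the others, and among those named they are AXIN2, BST2, CADM3, CD74, CDH11, COL6A1, COL6A2, CXCL5, ELF3, FGFR3, HOXA6, HRK, ID2, ITGA4, ITGA11, ITGB7, KRT4, KRT13, KRT23, LUM, OVOL1, SBSN, SRGN and TJP3. Where a list is counted again without both p53 wild-type libraries that stand apart, the number higher comes before the number lower. In that setting more of the 13396 genes tested were called, 3008 in all, with 1470 higher and 1538 lower. List counts from that setting belong beside these numbers and not beside the 9.29% and 7.94%. Of 24 epithelial junction genes, 22 fell with H-Ras in the p53-deleted lines and 23 in the p53 wild-type lines, and the difference was called for 14, of which 8 had a higher and 6 a lower response in the p53-deleted lines. Without both libraries that stand apart, 9 were higher and 7 lower. EPCAM, an epithelial adhesion molecule, had 101, 118 and 104 in p53-deleted H-Ras, against 727, 778 and 851 in p53-deleted vector libraries. It had 22.9, 18.2 and 12.1 in p53 wild-type H-Ras, against 1008, 1112 and 1163 in p53 wild-type vector libraries. It fell in both backgrounds, with responses of -2.85 ± 0.18 in p53-deleted lines and -5.91 ± 0.18 in p53 wild-type lines, and all p53-deleted H-Ras libraries were above the p53 wild-type ones, and the difference was 3.06 ± 0.26 (adjusted p = 1.4e-05). DSG3, a desmosome cadherin, went the other way, with 8.25 ± 1.09 in p53-deleted H-Ras, against 1783 ± 222 in p53-deleted vector, and 62.5 ± 4.65 in p53 wild-type H-Ras, against 1362 ± 295 in p53 wild-type vector and a difference of -3.18 ± 0.23 (adjusted p = 4.1e-06). TJP3, a tight junction scaffold, had 22.4 ± 10.1 in p53-deleted H-Ras, against 11.8 ± 6.20 in p53-deleted vector, and 3.22 ± 2.17 in p53 wild-type H-Ras, against 109 ± 75.2 in p53 wild-type vector, and only its p53 wild-type fall was called. OVOL1, a repressor of mesenchymal genes, had 1 read in each H-Ras group. Its vector levels were 66.3 ± 7.77 in p53-deleted and 11.3 ± 1.83 in p53 wild-type lines. It fell in both. Its difference of -2.45 ± 0.55 (adjusted p = 0.0098) mirrors these levels and cannot rank the falls.

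Of 15 basal and hemidesmosome genes, 10 were called, 2 with a higher and 8 with a lower response in p53-deleted lines, and 2 and 9 without both libraries that stand apart. COL17A1 had 30.7, 29.4 and 32.99 in p53-deleted H-Ras, against 6653, 6967 and 7555 in p53-deleted vector libraries. It had 515, 533 and 482 in p53 wild-type H-Ras, against 6156, 6013 and 6219 in p53 wild-type vector libraries. It fell in both backgrounds, and less was left in the p53-deleted H-Ras libraries than in the p53 wild-type ones, and the difference was -4.20 ± 0.12 (adjusted p = 6.6e-10). KRT6A, a keratin of activated epidermis with close copies in the genome, had 1709 ± 167 in p53-deleted H-Ras, against 20818 ± 1787 in p53-deleted vector, and 2662 ± 882 in p53 wild-type H-Ras, against 12184 ± 2940.3 in p53 wild-type vector and a difference of -1.39 ± 0.30 (adjusted p = 0.0077). ITGB4, whose fall was lost, is given above.

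Of 10 luminal genes, 8 were called, 5 higher and 3 lower, and 5 and 4 without both libraries that stand apart. MUC1, a membrane mucin, had 247, 296 and 307 in p53-deleted H-Ras, against 141, 105 and 148 in p53-deleted vector libraries. It had 378, 338 and 192 in p53 wild-type H-Ras, against 928, 714 and 614 in p53 wild-type vector libraries. Its responses of 1.12 ± 0.24 in p53-deleted lines and -1.35 ± 0.24 in p53 wild-type lines left the H-Ras lines at overlapping values, with a difference of 2.46 ± 0.33 (adjusted p = 0.00042). ELF3, an epithelial ETS factor, and KRT23 fell in both backgrounds, with differences of 2.49 ± 0.55 and -3.27 ± 0.77, and neither was called with voom (adjusted p = 0.24 and 0.059).

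All 6 called members of the 15 squamous differentiation genes had a lower response in p53-deleted lines, and 7 did without both libraries that stand apart. Over the list, 11 fell and 0 rose in p53-deleted lines, and 7 fell and 3 rose in p53 wild-type lines. KRT13, a keratin of stratified internal epithelia, had 1.86, 0 and 4.12 in p53-deleted H-Ras, against 1652, 927 and 1936 in p53-deleted vector libraries. It had 2.86, 0.956 and 0 in p53 wild-type H-Ras, against 1.75, 7.38 and 4.47 in p53 wild-type vector libraries. It was abundant in the p53-deleted vector libraries only, where it was 755 times the H-Ras level (95% interval 347 to 2059), and its p53 wild-type response of -1.35 ± 0.63 was not called (adjusted p = 0.11). KRT4, its partner keratin, had 0 reads in the p53-deleted H-Ras libraries and was at least 133-fold lower there than in their vector libraries, taking a floor of 3 reads per group. SBSN, a secreted protein of suprabasal epidermis, was opposite, with 2.05 ± 2.06 in p53-deleted H-Ras, against 14.8 ± 8.62 in p53-deleted vector, and 22.9 ± 6.96 in p53 wild-type H-Ras, against 6.18 ± 1.73 in p53 wild-type vector and a difference of -4.20 ± 0.82 (adjusted p = 0.0047). It had 6 reads in p53-deleted H-Ras, and its p53 wild-type rise was not called without p53 wild-type H-Ras A or B or any 1 vector library (adjusted p = 0.053 to 0.11), with a pseudocount of 0.5 (0.066) or without a filter (0.061).

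**Figure D5:**
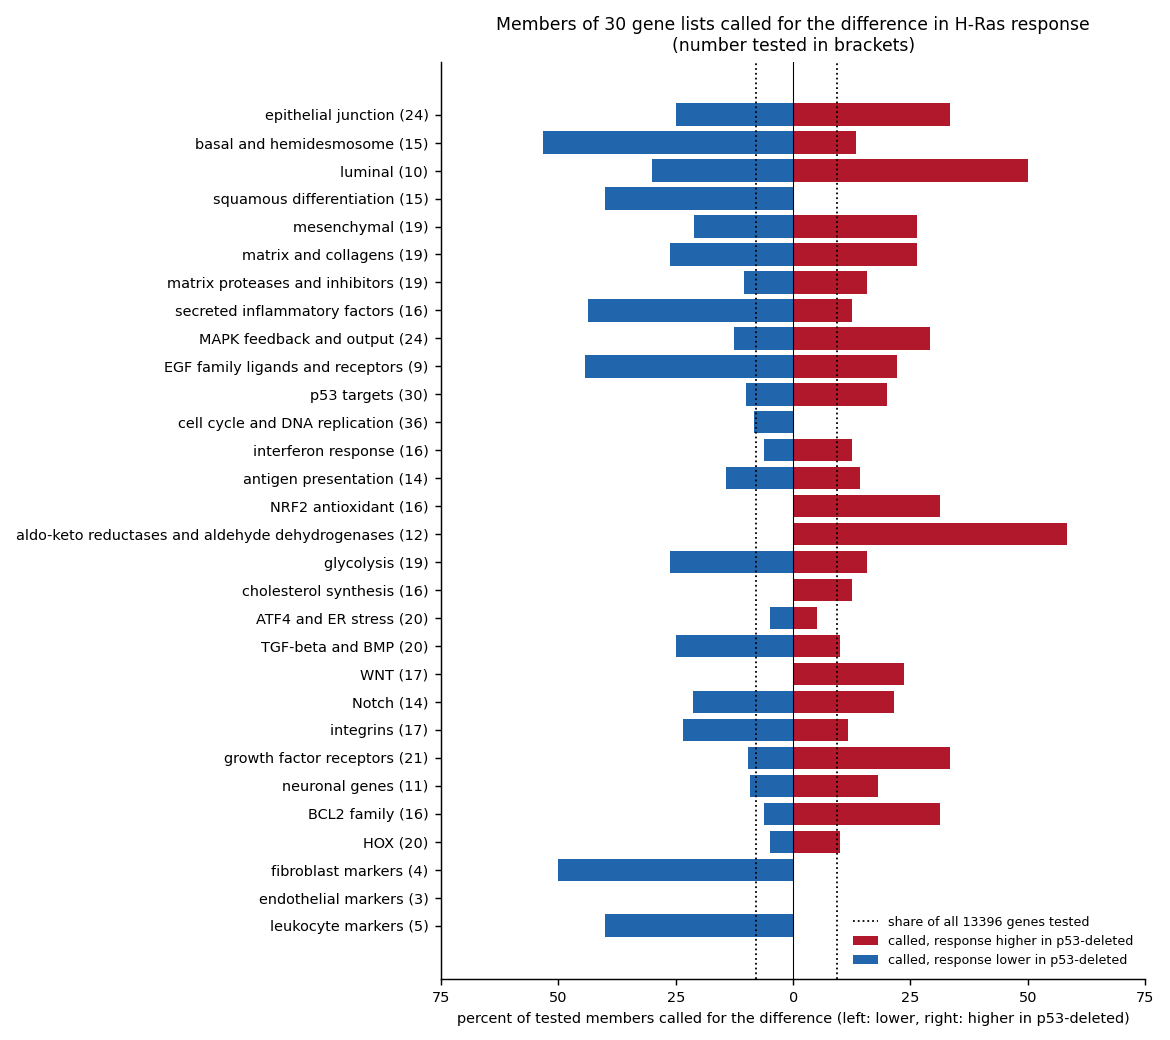
Percent of tested members of each of 30 gene lists called for the difference in H-Ras response, drawn to the right for a higher and to the left for a lower response in the p53-deleted lines, with the number tested in brackets. Dotted lines mark the 9.29% and 7.94% of all genes tested. The aldo-keto reductase and aldehyde dehydrogenase list has 7 members to the right and 0 to the left, and the squamous list 0 to the right and 6 to the left.

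Of 19 mesenchymal genes, 14 rose and 1 fell in each background, and 9 were called for the difference, 5 higher and 4 lower, with 7 and 4 without both libraries that stand apart. VIM had 5414, 5647 and 5531 in p53-deleted H-Ras, against 55.1, 96.7 and 53.5 in p53-deleted vector libraries. It had 6608, 6781 and 6803 in p53 wild-type H-Ras, against 1286, 1186 and 1337 in p53 wild-type vector libraries. The p53-deleted vector libraries were the low ones, and the responses of 6.37 ± 0.17 in p53-deleted lines and 2.41 ± 0.17 in p53 wild-type lines differed by 3.96 ± 0.24 (adjusted p = 1.3e-06). SNAI2, TNC and CDH11, described above, had lower responses in the p53-deleted lines.

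Of 19 matrix and collagen genes, 10 were called, 5 in each direction, and 6 higher and 5 lower without both libraries. SRGN, the proteoglycan serglycin, had 3211 ± 366 in p53-deleted H-Ras, against 3.32 ± 0.526 in p53-deleted vector, and 461 ± 101 in p53 wild-type H-Ras, against 7.91 ± 1.54 in p53 wild-type vector and a difference of 3.85 ± 0.28 (adjusted p = 4.1e-06). COL6A1 and COL6A2, chains of collagen VI, were higher in both p53-deleted groups and rose less there. COL6A1 had 2176, 1769 and 1754 in p53-deleted H-Ras, against 648, 701 and 749 in p53-deleted vector, and 102, 98.4 and 53.6 in p53 wild-type H-Ras, against 2.63, 1.05 and 2.24 in p53 wild-type vector libraries, and its difference was -3.40 ± 0.36 (adjusted p = 7.4e-05). COL6A2 had 498 ± 56.9 in p53-deleted H-Ras, against 158 ± 33.7 in p53-deleted vector, and 47.4 ± 13.9 in p53 wild-type H-Ras, against 0.351 ± 0.608 in p53 wild-type vector, and its difference was -3.54 ± 0.44 (adjusted p = 0.00021). LUM, the proteoglycan lumican, had 0 reads in all p53-deleted libraries and 44 against 5 reads in p53 wild-type lines. This list was 0.54 lower in p53 wild-type H-Ras library C than in the other libraries of its group (median log2 deviation), and its part in the result was not tested beyond the counts without both libraries.

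Of 19 matrix proteases and inhibitors, 5 were called, 3 higher and 2 lower, with 3 and 5 without both libraries that stand apart and 3 in all without p53-deleted H-Ras library C or without p53 wild-type vector library B. The median deviation of H-Ras library C was -0.69. SERPINE2, a serine protease inhibitor, had 5626 ± 1482 in p53-deleted H-Ras, against 141 ± 21.8 in p53-deleted vector, and 2623 ± 679 in p53 wild-type H-Ras, against 250.2 ± 42.1 in p53 wild-type vector and a difference of 1.93 ± 0.31 (adjusted p = 0.0013). TIMP1, a metalloprotease inhibitor, rose in both backgrounds, and its difference of 1.13 ± 0.35 (adjusted p = 0.045) was lost without any of 7 libraries, which were p53-deleted H-Ras A and C, p53-deleted vector A and C, p53 wild-type H-Ras C and p53 wild-type vector B and C (adjusted p = 0.056 to 0.1). PLAT, a plasminogen activator, and CTSL, a lysosomal protease, had differences of 1.02 ± 0.25 and -0.94 ± 0.24.

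Of 17 integrins, 6 were called, 2 higher and 4 lower, with 1 and 5 without both libraries, and the median deviations were 0.54 for vector library A and -0.74 for H-Ras library C. ITGA10, a collagen receptor subunit, had 2753, 2169 and 2105 in p53-deleted H-Ras, against 83.1, 57.6 and 96.5 in p53-deleted vector libraries. It had 305, 287 and 142 in p53 wild-type H-Ras, against 97.3, 56.9 and 49.2 in p53 wild-type vector libraries. It rose in both backgrounds, with 4.89 ± 0.31 in p53-deleted lines and 1.82 ± 0.31 in p53 wild-type lines, and the difference was 3.07 ± 0.44 (adjusted p = 0.00058). ITGB7 and ITGA4, which pair with each other in leukocytes, had lower responses in the p53-deleted lines. That of ITGB7 was -0.78 ± 0.39 in p53-deleted lines, against 1.70 ± 0.39 in p53 wild-type lines. That of ITGA4 was 0.96 ± 0.34 in p53-deleted lines, against 3.30 ± 0.34 in p53 wild-type lines, and its difference was not called with a pseudocount of 5 (adjusted p = 0.053). ITGA11 rose by 4.80 ± 0.39 in p53-deleted lines, against 2.76 ± 0.39 in p53 wild-type lines, and its call was lost without p53-deleted H-Ras A, B or C or vector A or B (adjusted p = 0.056 to 0.058).

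Among secreted inflammatory factors, most called members had a lower response in the p53-deleted lines. Of 16, the difference was called for 9, of which 2 had a higher and 7 a lower response in p53-deleted lines, and 2 and 9 without both libraries, with a median deviation of -0.62 in H-Ras library C. The list's median response was 1.66 in p53-deleted lines and 2.24 in p53 wild-type lines, and the median difference was -1.01, beside -0.01 over all genes. IL1A, an alarm cytokine of epithelia, had 250.4, 164 and 166 in p53-deleted H-Ras, against 882, 1183 and 864 in p53-deleted vector libraries. It had 2247, 2494 and 1541 in p53 wild-type H-Ras, against 1818, 1498 and 1486 in p53 wild-type vector libraries. Its fall was gained, with a response of -2.34 ± 0.20 in p53-deleted lines and an uncalled 0.36 ± 0.20 in p53 wild-type lines, and a difference of -2.71 ± 0.29 (adjusted p = 7.6e-05). The p53 wild-type value was 0.57 without H-Ras library C (adjusted p = 0.023), 0.67 without both libraries that stand apart (0.0084) and 0.61 with array weights (0.00041), and IL1A was then opposite. CXCL5, a neutrophil chemokine, had 0 reads in all p53-deleted libraries and was at least 16.1-fold higher in p53 wild-type H-Ras than vector libraries, with 50 reads against 0. IL24, given above, was one of the members with a higher response.

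Signalling lists came next in order from ligands to outputs. Of 9 EGF family ligands and receptors, 6 were called, 2 higher and 4 lower, with 2 and 5 without both libraries. HBEGF is given above. BTC, another ligand, was opposite, with 20.97 ± 5.52 in p53-deleted H-Ras, against 39.1 ± 4.64 in p53-deleted vector, and 25.6 ± 1.25 in p53 wild-type H-Ras, against 13.9 ± 4.29 in p53 wild-type vector and a difference of -1.78 ± 0.38 (adjusted p = 0.0076). Its fall lost its call without p53-deleted H-Ras or vector library A (adjusted p = 0.071 and 0.062), and its rise without p53 wild-type H-Ras A or B or vector C (0.058 to 0.087), without a filter (0.057) and with the responses fitted within each background (0.065). NRG1, a ligand of ERBB receptors, fell in both backgrounds, with -2.94 ± 0.22 in p53-deleted lines, against -1.10 ± 0.22 in p53 wild-type lines. ERBB3, such a receptor, fell with -1.56 ± 0.30 in p53-deleted lines, against -3.26 ± 0.30 in p53 wild-type lines. Of 21 other growth factor receptors, 9 were called, 7 higher and 2 lower, with 7 and 3 without both libraries. FGFR3, a fibroblast growth factor receptor, had 125 ± 13.7 in p53-deleted H-Ras, against 237 ± 19.3 in p53-deleted vector, and 4.85 ± 1.59 in p53 wild-type H-Ras, against 88.3 ± 44.8 in p53 wild-type vector and a difference of 2.93 ± 0.41 (adjusted p = 0.00056). EPHB3 and EPHA1, receptors of ephrins, had differences of 2.93 ± 0.35 and 1.92 ± 0.36, and DDR1, a collagen receptor kinase, 1.32 ± 0.24. All 4 fell in both backgrounds and less so in the p53-deleted lines.

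Of 24 MAPK feedback and output genes, 14 rose and 2 fell in p53-deleted lines, and 13 rose and 3 fell in p53 wild-type lines. The difference was called for 10, 7 higher and 3 lower, and for 7 and 3 without both libraries that stand apart. JUN, a subunit of AP-1, had 183, 208 and 259 in p53-deleted H-Ras, against 299.5, 606 and 287 in p53-deleted vector libraries. It had 851, 829.5 and 769 in p53 wild-type H-Ras, against 458, 368 and 381 in p53 wild-type vector libraries. Its responses were -0.80 ± 0.23 in p53-deleted lines and 1.02 ± 0.23 in p53 wild-type lines, with a difference of -1.82 ± 0.33 (adjusted p = 0.0031). The p53-deleted fall was not called without H-Ras library A (adjusted p = 0.061) or with the responses fitted within each background (0.05). FOS, its partner, had 201, 192 and 194 in p53-deleted H-Ras, against 59.9, 57.6 and 69.2 in p53-deleted vector libraries. It had 238, 245 and 124 in p53 wild-type H-Ras, against 325, 169 and 159.9 in p53 wild-type vector libraries. Its rise was gained, with 1.64 ± 0.28 in p53-deleted lines, against -0.09 ± 0.28 in p53 wild-type lines, and a difference of 1.73 ± 0.40 (adjusted p = 0.011), and it was the p53-deleted vector line that was low. Without both libraries that stand apart, the p53 wild-type response was 0.55 (adjusted p = 0.0047), a rise in both backgrounds. ETV1, an ETS factor downstream of ERK, had 569 ± 70.98 in p53-deleted H-Ras, against 67.2 ± 12.3 in p53-deleted vector, and 415 ± 35.8 in p53 wild-type H-Ras, against 133 ± 33.2 in p53 wild-type vector and a difference of 1.41 ± 0.26 (adjusted p = 0.003).

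Of 20 TGF-beta and BMP genes, 7 were called, 2 higher and 5 lower, with 3 and 6 without both libraries. INHBA is given above. FST, the activin antagonist follistatin, had 5.55 ± 1.71 in p53-deleted H-Ras, against 308 ± 15.4 in p53-deleted vector, and 10.04 ± 3.91 in p53 wild-type H-Ras, against 119.8 ± 30.2 in p53 wild-type vector and a difference of -2.11 ± 0.40 (adjusted p = 0.0042). GDF15, a stress-induced ligand that is also a p53 target, had 269, 219 and 243 in p53-deleted H-Ras, against 26.1, 18.6 and 32.5 in p53-deleted vector libraries. It had 661, 534 and 289 in p53 wild-type H-Ras, against 465, 279 and 277 in p53 wild-type vector libraries. Its rise was 3.23 ± 0.30 in p53-deleted lines, against 0.50 ± 0.30 in p53 wild-type lines, at the bound of the gained class, with a difference of 2.73 ± 0.42 (adjusted p = 0.001). The p53 wild-type response was 0.84 without H-Ras library C (adjusted p = 0.015) and 1.09 without both libraries that stand apart (0.00072), so that GDF15 then rose in both backgrounds. Its p53-deleted vector libraries were the low ones. ID2, an inhibitor of helix-loop-helix factors, had 10.8 ± 2.95 in p53-deleted H-Ras, against 53.5 ± 5.08 in p53-deleted vector, and 3.60 ± 1.26 in p53 wild-type H-Ras, against 2.73 ± 1.30 in p53 wild-type vector, so that its fall was seen in the p53-deleted lines, where alone it was above a few counts.

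All 4 called members of 17 WNT genes had a higher response in p53-deleted lines, and 5 were higher and 1 lower without both libraries. SFRP1, a secreted WNT antagonist, had 878, 741 and 713 in p53-deleted H-Ras, against 1374, 1473 and 1283 in p53-deleted vector libraries. It had 119, 105 and 242 in p53 wild-type H-Ras, against 2057, 1907 and 1968 in p53 wild-type vector libraries. It fell in both backgrounds, with -0.83 ± 0.23 in p53-deleted lines and -3.76 ± 0.23 in p53 wild-type lines, a difference of 2.93 ± 0.32 (adjusted p = 0.0001). DKK1, another antagonist, had 1893 ± 63.3 in p53-deleted H-Ras, against 2507 ± 228 in p53-deleted vector, and 178 ± 91.8 in p53 wild-type H-Ras, against 791 ± 304 in p53 wild-type vector, with responses of -0.40 ± 0.32 in p53-deleted lines and -2.17 ± 0.32 in p53 wild-type lines and a difference of 1.77 ± 0.45 (adjusted p = 0.018). AXIN2, a WNT target, had a difference of 1.83 ± 0.46 and was not called without a filter (adjusted p = 0.066), and TCF7, a WNT transcription factor, had a difference of 1.14 ± 0.35 that was lost without p53-deleted H-Ras A, B or C, p53-deleted vector A or B, p53 wild-type H-Ras C or p53 wild-type vector A (adjusted p = 0.052 to 0.096).

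Of 14 Notch genes, 6 were called, 3 in each direction, also without both libraries, and 3 of them were opposite. NRARP, a target and inhibitor of Notch signalling, had 50.3, 57.8 and 74.2 in p53-deleted H-Ras, against 44.4, 25.4 and 27.3 in p53-deleted vector libraries. It had 6.68, 6.69 and 4.04 in p53 wild-type H-Ras, against 27.2, 30.6 and 42.5 in p53 wild-type vector libraries. The p53 wild-type H-Ras libraries were the low ones, with responses of 0.91 ± 0.29 in p53-deleted lines and -2.34 ± 0.29 in p53 wild-type lines and a difference of 3.25 ± 0.41 (adjusted p = 0.00023). Its p53-deleted rise was not called without H-Ras C or vector B or C (adjusted p = 0.069 to 0.086). LFNG, a modifier of Notch receptors, was opposite in the other direction, with -0.76 ± 0.22 in p53-deleted lines, against 1.08 ± 0.22 in p53 wild-type lines, and its fall was not called without p53-deleted H-Ras B or vector C (adjusted p = 0.056 and 0.059). JAG1, a ligand, was too, with -0.52 ± 0.12 in p53-deleted lines, against 0.42 ± 0.12 in p53 wild-type lines, and its rise was not called without p53 wild-type H-Ras B or vector B (adjusted p = 0.066 and 0.058) or with the responses fitted within each background (0.059). JAG2, a further ligand, fell in both backgrounds, with -1.12 ± 0.11 in p53-deleted lines, against -2.32 ± 0.11 in p53 wild-type lines.

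Over all genes tested, 22.8% rose and 23.3% fell in p53-deleted lines, and 18.2% rose and 18.4% fell in p53 wild-type lines. Of 30 p53 targets, 13 rose and 7 fell with H-Ras in the p53-deleted lines, and 6 rose and 11 fell in the p53 wild-type lines. The difference was called for 9, of which 6 had a higher and 3 a lower response in p53-deleted lines, and 8 and 3 without both libraries that stand apart, and 4 of the 9 were opposite. BBC3, the death gene PUMA, had 77.3, 100.4 and 113 in p53-deleted H-Ras, against 58.9, 52.8 and 67.1 in p53-deleted vector libraries. It had 44.9, 52.6 and 44.5 in p53 wild-type H-Ras, against 83.2, 71.6 and 70.4 in p53 wild-type vector libraries. Its responses were 0.68 ± 0.18 in p53-deleted lines (adjusted p = 0.0078) and -0.66 ± 0.18 in p53 wild-type lines (adjusted p = 0.012), a difference of 1.34 ± 0.25 (adjusted p = 0.0039). FDXR, a mitochondrial reductase, was opposite in the same sense, with 308 ± 14.8 in p53-deleted H-Ras, against 238 ± 38.3 in p53-deleted vector, and 145 ± 14.3 in p53 wild-type H-Ras, against 215 ± 23.5 in p53 wild-type vector and a difference of 0.95 ± 0.19 (adjusted p = 0.0061). Its p53-deleted rise of 0.38 ± 0.14 was not called without p53-deleted H-Ras A, B or C or vector A or B (adjusted p = 0.062 to 0.14) or without a filter (0.061). DDB2, a DNA damage binding protein, had 130.3, 145 and 128 in p53-deleted H-Ras, against 345, 256 and 367 in p53-deleted vector libraries. It had 676, 558 and 857 in p53 wild-type H-Ras, against 685, 799 and 774 in p53 wild-type vector libraries. It was lower in both p53-deleted groups, and its fall was gained, with a difference of -1.11 ± 0.23 (adjusted p = 0.0066). SERPINB5, the epithelial protein maspin, fell in both, with a difference of -1.23 ± 0.11 (adjusted p = 3e-05).

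CDKN1A and MDM2, the p53 targets that act in arrest and in p53 turnover, were also called members of that list, and are given for their roles, after their values were seen. CDKN1A had 2374 ± 308 in p53-deleted H-Ras, against 863 ± 76.9 in p53-deleted vector, and 3839 ± 418 in p53 wild-type H-Ras, against 2184 ± 164 in p53 wild-type vector, with responses of 1.45 ± 0.12 in p53-deleted lines and 0.81 ± 0.12 in p53 wild-type lines and a difference of 0.64 ± 0.17 (adjusted p = 0.019). MDM2 had 1349 ± 73.8 in p53-deleted H-Ras, against 946 ± 59.8 in p53-deleted vector, and 933 ± 72.8 in p53 wild-type H-Ras, against 1240.1 ± 197 in p53 wild-type vector, with responses of 0.51 ± 0.12 in p53-deleted lines and -0.40 ± 0.12 in p53 wild-type lines and a difference of 0.91 ± 0.16 (adjusted p = 0.0029).

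Of 16 BCL2 family genes, 6 were called, 5 higher and 1 lower, with 4 and 2 without both libraries and 3 in all without p53-deleted H-Ras library C. BIK, a death gene, fell in both backgrounds, with -1.03 ± 0.17 in p53-deleted lines, against -2.31 ± 0.17 in p53 wild-type lines, a difference of 1.28 ± 0.23 (adjusted p = 0.0032). BMF, another, had a difference of 2.44 ± 0.66 that was lost without p53-deleted H-Ras A or C or p53-deleted vector B (adjusted p = 0.051 to 0.064). HRK fell to 1 read in p53-deleted and 0 in p53 wild-type H-Ras, so its difference of 2.72 ± 0.86 mirrors vector levels. The call was lost without each library but vector C of either background (adjusted p = 0.056 to 0.11) and with voom (0.31).

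All 36 cell cycle and DNA replication genes fell with H-Ras in the p53-deleted lines, and 13 fell in the p53 wild-type lines, with median responses of -2.24 and -0.81. The difference was called for 3, or 8.33% beside the 17.2% of all genes, all with a lower response in p53-deleted lines, and the median difference was -1.32. These values moved with the libraries that stand apart. The list's median deviation was -0.84 in p53 wild-type vector library A and 1.62 in p53 wild-type H-Ras library C, and without both of them 35 of the 36 fell in the p53 wild-type lines, the median difference was -0.45 and 8 were called, all lower. Among all 13396 genes tested, 3008 were called for the difference in that setting, 1538 of them lower. With 1 library left out, 1 to 15 members were called, with 15 without p53 wild-type H-Ras library B, 6 without p53 wild-type H-Ras library A, and 1 without any p53-deleted library or without p53 wild-type vector library A or B. BRCA2, a DNA repair gene, had 25.1, 34.5 and 32.99 in p53-deleted H-Ras, against 239.6, 297 and 166 in p53-deleted vector, and 64.9, 71.7 and 180.0 in p53 wild-type H-Ras, against 112, 153 and 62.6 in p53 wild-type vector libraries, with p53 wild-type H-Ras library C far above A and B. Its difference was -2.74 ± 0.55 (adjusted p = 0.0055). BUB1 and CDK1, kinases of mitosis, had differences of -1.76 ± 0.55 and -1.59 ± 0.50. The call of BUB1 held without p53 wild-type H-Ras A or B or vector C and was lost without the other 9 libraries (adjusted p = 0.053 to 0.11), and that of CDK1 held without any 1 p53 wild-type H-Ras library and was lost without the other 9 (0.052 to 0.1).

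Among antioxidant and reductase genes, the called members had a higher response in the p53-deleted lines. Of 12 aldo-keto reductases and aldehyde dehydrogenases, 7 were called, all higher, whichever library was left out and also without both libraries that stand apart, with a median deviation on this list of 0.64 in vector library A and -0.57 in H-Ras library C. The median difference was 1.38. ALDH3A1 is given above. AKR1C2 and AKR1C1, reductases of steroids and carbonyls whose near-identical sequences could share reads, rose in both backgrounds. AKR1C2 had 3645, 3482 and 3351 in p53-deleted H-Ras, against 64.7, 87.9 and 78.6 in p53-deleted vector, and 1907, 2044 and 1227 in p53 wild-type H-Ras, against 395, 349 and 381 in p53 wild-type vector libraries, and a difference of 3.33 ± 0.24 (adjusted p = 4.1e-06). AKR1C1 had 3697, 3950.2 and 3768 in p53-deleted H-Ras, against 39.6, 54.7 and 37.7 in p53-deleted vector, and 3175, 3551 and 1064 in p53 wild-type H-Ras, against 280.4, 134 and 139 in p53 wild-type vector libraries, and a difference of 2.70 ± 0.55 (adjusted p = 0.0057). On the common scale, their log2 differences (p53-deleted minus p53 wild-type) were -2.44 and -2.13 in vector lines and 0.89 and 0.58 in H-Ras lines. The 0.58 of AKR1C1 rested on p53 wild-type H-Ras library C (1064). AKR1B10, a related reductase, was opposite, with 18.9 ± 7.45 in p53-deleted H-Ras, against 5.70 ± 4.10 in p53-deleted vector, and 20.02 ± 4.84 in p53 wild-type H-Ras, against 63.4 ± 34.7 in p53 wild-type vector and a difference of 3.32 ± 0.78 (adjusted p = 0.013). It kept this class without p53-deleted vector library A or C, and 1 or both of its responses lost their call without each of the other 10 libraries (adjusted p = 0.053 to 0.14), and so did the p53 wild-type response (0.21) without both libraries that stand apart.

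Of 16 NRF2 antioxidant genes, 11 rose and 0 fell in p53-deleted lines, and 6 rose and 3 fell in p53 wild-type lines. The difference was called for 5, all higher, and for 5 higher and 1 lower without both libraries. TKT and PGD, enzymes of the pentose phosphate pathway, were among them. TKT had 11788 ± 417 in p53-deleted H-Ras, against 7751 ± 1341 in p53-deleted vector, and 6193 ± 716 in p53 wild-type H-Ras, against 10063 ± 1614 in p53 wild-type vector, and was opposite with a difference of 1.31 ± 0.20 (adjusted p = 0.00089). PGD had 4953 ± 344 in p53-deleted H-Ras, against 2605 ± 328 in p53-deleted vector, and 2334 ± 449 in p53 wild-type H-Ras, against 2517 ± 208 in p53 wild-type vector and a difference of 1.06 ± 0.20 (adjusted p = 0.0037).

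Of 19 glycolysis genes, 8 were called, 3 higher and 5 lower, with 2 and 7 without both libraries and 3 to 5 in all without any p53-deleted H-Ras library, p53-deleted vector A or B, p53 wild-type H-Ras A or B or p53 wild-type vector B. SLC2A1, the common glucose transporter, had 628, 692 and 734 in p53-deleted H-Ras, against 1597, 1388 and 1890.2 in p53-deleted vector libraries. It had 2124, 2108 and 1673 in p53 wild-type H-Ras, against 1949.7, 1784 and 1739.7 in p53 wild-type vector libraries. Its fall was gained, with -1.24 ± 0.13 in p53-deleted lines, against 0.10 ± 0.13 in p53 wild-type lines, a difference of -1.34 ± 0.18 (adjusted p = 0.00037). With array weights the p53 wild-type value was 0.23 and called (adjusted p = 0.013), so that SLC2A1 was then opposite. SLC2A3, a second transporter, had 28.4 ± 4.01 in p53-deleted H-Ras, against 13.6 ± 5.75 in p53-deleted vector, and 1692 ± 736 in p53 wild-type H-Ras, against 140.1 ± 104 in p53 wild-type vector and a difference of -2.62 ± 0.67, not called with voom (adjusted p = 0.15). PFKFB3, a regulator of glycolytic flux, was opposite, at -0.57 ± 0.08 in p53-deleted lines, against 0.52 ± 0.08 in p53 wild-type lines. ALDOC, an aldolase, had a difference of 1.23 ± 0.35, which was lost without p53-deleted H-Ras A, B or C or vector A or B (adjusted p = 0.056 to 0.074).

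Of 16 cholesterol synthesis genes, 2 were called (12.5%), both higher, also without both libraries, and 1 without p53-deleted H-Ras B or C, p53-deleted vector B or p53 wild-type vector A. CYP51A1, a demethylase of the pathway, had a difference of 1.17 ± 0.24 (adjusted p = 0.0063), and DHCR7, a reductase at its end, had 0.73 ± 0.21, which was lost without those 4 libraries (adjusted p = 0.061 to 0.079). Of 20 ATF4 and ER stress genes, 2 were called, 1 in each direction, with a median deviation of -0.64 in H-Ras library C, with 1 higher and 3 lower without both libraries, with 4 without H-Ras library C alone, and with 1 without p53-deleted H-Ras C or p53-deleted vector A or C. VLDLR, a lipoprotein receptor, rose by 2.36 ± 0.26 in p53-deleted lines, against 4.17 ± 0.26 in p53 wild-type lines, and was not called with voom (adjusted p = 0.062). VEGFA, an angiogenic factor, had a difference of 1.24 ± 0.35, lost without p53-deleted H-Ras A or C or vector A or C (adjusted p = 0.055 to 0.074).

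Of 16 interferon response genes, 3 were called, 2 higher and 1 lower, a share of 18.8% beside the 17.2% of all genes. BST2, a restriction factor, had 33.5 ± 13.00 in p53-deleted H-Ras, against 1.97 ± 0.925 in p53-deleted vector, and 46.3 ± 19.3 in p53 wild-type H-Ras, against 27.3 ± 14.3 in p53 wild-type vector and a difference of 2.77 ± 0.61 (adjusted p = 0.0093). OAS1 and OASL, sensors of the antiviral response, had differences of 2.47 ± 0.56 and -1.58 ± 0.40. Of 14 antigen presentation genes, 4 were called, 2 in each direction, with 1 higher and 4 lower without both libraries, and every single omission gave 3 or fewer, down to 0 without p53-deleted vector library A. CD74, the invariant chain, had 2 reads in p53-deleted H-Ras and 0 in p53-deleted vector libraries, and 58.2 ± 24.3 normalized counts in p53 wild-type H-Ras, against 5.73 ± 3.44 in p53 wild-type vector. Its difference of -2.51 ± 0.70 was lost without p53-deleted H-Ras A, p53-deleted vector A or B, p53 wild-type H-Ras A or B or p53 wild-type vector B (adjusted p = 0.054 to 0.068) and with voom (0.24). PSMB9, an immunoproteasome subunit, and NLRC5, a regulator of class I genes, had differences of 1.00 ± 0.30 and -0.63 ± 0.19, each of which held with 2 of the 12 libraries left out in turn (p53-deleted H-Ras A and p53 wild-type vector B for PSMB9, p53-deleted H-Ras B and p53 wild-type H-Ras C for NLRC5) and was lost with the other 10 (adjusted p = 0.054 to 0.098). TAPBP, a peptide-loading protein, had a difference of 0.79 ± 0.21, lost without p53-deleted H-Ras C (adjusted p = 0.055) or p53-deleted vector A (0.058).

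Of 11 neuronal genes, 3 were called, 2 higher and 1 lower, with 2 and 3 without both libraries; the median deviation was 0.89 in vector library A and -0.80 in H-Ras library C. CADM3, an adhesion molecule of neurons, had 275, 267 and 319 in p53-deleted H-Ras, against 0, 0 and 0 in p53-deleted vector libraries. It had 11.5, 8.60 and 1.01 in p53 wild-type H-Ras, against 0, 0 and 0 in p53 wild-type vector libraries. With 0 reads in both vector groups, it was at least 287-fold higher with H-Ras in p53-deleted lines and at least 7.10-fold higher in p53 wild-type lines, with that same floor. MAP2 and MAP1B, microtubule proteins, moved in different ways. MAP2 had 127, 115 and 86.6 in p53-deleted H-Ras, against 11.6, 17.6 and 17.8 in p53-deleted vector, and 36.3, 37.3 and 11.1 in p53 wild-type H-Ras, against 98.1, 55.8 and 49.2 in p53 wild-type vector libraries, with 2.73 ± 0.41 in p53-deleted lines, -1.34 ± 0.41 in p53 wild-type lines and a difference of 4.08 ± 0.58 (adjusted p = 0.00057). Its p53 wild-type fall was not called without vector library A (adjusted p = 0.068), without both libraries that stand apart (0.13) or with the responses fitted within each background (0.1). MAP1B had 2405 ± 57.8 in p53-deleted H-Ras, against 343 ± 81.5 in p53-deleted vector, and 1978 ± 259 in p53 wild-type H-Ras, against 34.9 ± 13.1 in p53 wild-type vector and rose in both, with a difference of -3.01 ± 0.32 (adjusted p = 7.6e-05).

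Of 20 HOX genes, 3 were called, 2 higher and 1 lower, and 1 without p53-deleted H-Ras B or C, p53-deleted vector B or C or p53 wild-type H-Ras A. HOXA5 had a difference of 1.16 ± 0.25 (adjusted p = 0.008). The difference of HOXA6, 2.38 ± 0.72, held without p53-deleted H-Ras A, p53 wild-type H-Ras B or p53 wild-type vector B and was lost without the other 9 libraries (adjusted p = 0.06 to 0.1), and that of HOXB2, -1.10 ± 0.34, held without p53-deleted vector A or p53 wild-type vector C and was lost without the other 10 (0.061 to 0.1) and without a filter (0.14).

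Markers of other cell types were counted as a check on the lines. Of 9 fibroblast markers, COL1A2 and COL3A1 were at 0 in every group and PDGFRB and THY1 were under 5 in every group. The lowest and highest summed levels were 543 and 829 in p53-deleted H-Ras, against 615 and 707 in p53-deleted vector, and 2520 and 3922 in p53 wild-type H-Ras, against 393 and 556 in p53 wild-type vector libraries, mostly as DCN and FAP. Of 7 endothelial markers, PECAM1 was at 0 in every group and CLDN5 and VWF were under 5, and the sums were 557 to 617 in p53-deleted H-Ras, against 79.2 to 111 in p53-deleted vector, and 657 to 837 in p53 wild-type H-Ras, against 167 to 202 in p53 wild-type vector libraries, mostly as ROBO4 and KDR. Of 9 leukocyte markers, PTPRC and CD3E were at 0 in every group and CD53 and CD79A under 5, and the sums were 6819 to 7095 in p53-deleted H-Ras, against 10105 to 12431 in p53-deleted vector, and 4751 to 7331 in p53 wild-type H-Ras, against 4294 to 5366 in p53 wild-type vector libraries, mostly as LCP1. Among tested members, 2 of 4 fibroblast markers (LUM and FAP, both lower), 0 of 3 endothelial markers and 2 of 5 leukocyte markers (LCP1 and CSF1R, both lower) were called, and 1 leukocyte marker when any of 9 libraries was left out. The part of these markers in the results was not tested. FAP, a surface protease, had 149 ± 36.2 in p53-deleted H-Ras, against 542 ± 56.3 in p53-deleted vector, and 265 ± 56.6 in p53 wild-type H-Ras, against 217 ± 29.5 in p53 wild-type vector and a difference of -2.15 ± 0.27 (adjusted p = 0.00026). LCP1, an actin-bundling protein that epithelial tumour lines also express, was opposite, at -0.84 ± 0.13 in p53-deleted lines, against 0.43 ± 0.13 in p53 wild-type lines, a rise that was not called without H-Ras A or B or vector B (adjusted p = 0.071 to 0.094) or with the responses fitted within each background (0.08). CSF1R had a difference of -1.48 ± 0.47 that held without p53-deleted H-Ras A, p53 wild-type H-Ras C or p53 wild-type vector A and was lost without the other 9 libraries (adjusted p = 0.061 to 0.11).

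The authors' deposited table for each background gives its own adjusted p and fold change. By the authors' deposited tables, 1561 genes had an adjusted p under 0.05 in both backgrounds, and 68 of them had deposited fold changes on opposite sides of 1. Of those 68, 56 were among the 218 opposite genes called here.

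The 38 very abundant genes without library values are given as the authors' deposited means, with no SD, n or test. Their differences by the rule ran from -1.76 to 1.50, and 30 were within 1. FN1, the matrix protein fibronectin, had a deposited mean of 105136 in p53-deleted H-Ras, against 21308 in p53-deleted vector, and 64070 in p53 wild-type H-Ras, against 3845 in p53 wild-type vector, a difference of -1.76. SOD2, the mitochondrial superoxide dismutase, had 5283 in p53-deleted H-Ras, against 1211 in p53-deleted vector, and 18136 in p53 wild-type H-Ras, against 11800 in p53 wild-type vector, a difference of 1.50. S100A6, a calcium-binding protein, had 48372 in p53-deleted H-Ras, against 16296 in p53-deleted vector, and 25713 in p53 wild-type H-Ras, against 19139 in p53 wild-type vector, a difference of 1.14. KRT81, TGFBI, KRT5 and S100A2 had differences of -1.40, -1.34, -1.08 and -1.03.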

How the data were processed

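RNA from 4 groups of MCF10A cells was sequenced in 12 libraries, 3 per group. Per the submitters' processing notes, the tools were FastQC, Trimmomatic, TopHat, SAMtools and HTSeq with the genome build GRCh37; versions, annotation and strand setting are not given in the sources used here. Per the file headers, the authors deposited 1 table for each background with group means, which are a signal made of read counts divided by size factors and averaged over libraries. The p53 wild-type columns are headed with a number that differs from the one in that table's title. The authors also deposited, per gene, a fold change (a ratio of means, H-Ras over vector) and a p-value with its adjusted value; these are used only where their table is named.

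Single library values were recovered from the 15 printed digits of each mean as the only whole read counts, divided by 3 size factors, that average to it. Group means up to 1000 were searched in full. Group means from 1000 to 10000 were searched within 0.2 to 2.5 times the mean, and within 0.5 to 1.6 times where several solutions were found. Group means over 10000 were searched within 0.5 to 1.6 times the mean, or within 0.2 to 2.5 times where none was found. Above 1000, a solution is therefore unique only within these bounds. A unique solution was found for 99.8% to 100% of genes above 0 per group. In 2000 shifted means per group, 0 were solved, and of 300 shifted high means, 3 were solved in the p53-deleted vector group and 0 in the others. In 2000 simulated means per group, 0 solutions were wrong. Libraries were lettered in order of size factor, highest first, and carry no replicate number. Left out were 38 very abundant genes with no unique solution.

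Values were tested as log2(value + 1) with limma 3.58.1 in R 4.3.3, with an intensity trend and 1 fit over all 12 libraries; the difference of responses was a contrast of that fit, two-sided, with Benjamini-Hochberg adjustment and a threshold of 0.05. In simulated data over 13157 genes, 73% of genes with a true absolute log2 difference of 1 and 99% of those with 2 were called. These differences were placed in 100 genes for each size, all with simulated means well above 5 in every group. No simulated library was made to stand apart. The shares therefore do not cover low genes or the spread of the libraries that stand apart. Estimated depth was 7846958 to 10084898 reads, and intervals and floors of 3 reads over a group cover counting error only. Genes were named as the 5 largest differences per class and direction among genes with a mean of at least 5 in every group and 100 in the highest, the 3 largest among genes under 5, and up to 4 called members with the largest difference per list; some genes that met this rule are not reported here. The members, classes and 30 gene lists were chosen with earlier results of these data known. Alternatives were other pseudocounts, filters and size factors, voom on whole reads, array weights, other bounds of the classes and leaving out libraries.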

Additional observations from a re-analysis of the deposited data

Results flagged for a closer look

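The response to H-Ras differed between the p53 backgrounds, by the test of the difference itself, in 2308 genes. The log2 difference (p53-deleted minus p53 wild-type) was largest, among opposite genes with a mean of at least 5 in every group and at least 100 in the highest, in CAMK2B (7.37), SYT12 (7.30), ALDH3A1 (5.85), SULT1E1 (5.20) and METTL7A (4.11), and in the other direction in PI3 (-5.70), KCNJ15 (-4.50), SEMA7A (-4.39), SPOCD1 (-4.20) and CTSS (-3.56). Among lost responses it was 6.52 in COBL, 3.73 in EYA2, 3.59 in B4GALNT3, 3.11 in ARVCF, 2.78 in LIMCH1, -2.57 in GPAM, -2.36 in TNC, -2.15 in SLC26A2, -2.03 in FRMD3 and -2.02 in FRMD4A. Among gained responses it was -4.58 in EHF, -3.85 in KRT121P and -3.65 in CPA4, and 3.95 in IL24, 3.60 in ABCA3, 3.34 in CYP4X1, 3.15 in CD70 and 3.12 in REEP2. Among genes with a mean under 5 in some group it was -6.60 in SERPINB2, -5.36 in CD22, -3.10 in GPAT2, 3.54 in FEZ1, 3.11 in GYLTL1B, 2.66 in TMEM63C, -4.44 in ADAMTS12, -4.11 in CDH11, -3.92 in CSF2 and -1.87 in KIF26A.

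By list, the difference was called for 14 of 24 epithelial junction genes, 10 of 15 basal and hemidesmosome genes, 8 of 10 luminal genes, 6 of 15 squamous genes, 9 of 19 mesenchymal genes, 10 of 19 matrix genes, 5 of 19 matrix proteases and inhibitors and 6 of 17 integrins, beside 17.2% of all genes tested. It was also called for 9 of 16 secreted inflammatory factors, 10 of 24 MAPK genes, 6 of 9 EGF family genes, 9 of 21 growth factor receptors, 7 of 20 TGF-beta and BMP genes, 4 of 17 WNT genes and 6 of 14 Notch genes. Further counts were 9 of 30 p53 targets, 6 of 16 BCL2 family genes, 4 of 14 antigen presentation genes, 5 of 16 NRF2 genes, 7 of 12 aldo-keto reductases and aldehyde dehydrogenases, 8 of 19 glycolysis genes, 3 of 11 neuronal genes, 2 of 4 fibroblast markers and 2 of 5 leukocyte markers. Near or below the 17.2% of all genes were 3 of 36 cell cycle genes, 2 of 20 ATF4 and ER stress genes, 2 of 16 cholesterol synthesis genes, 3 of 20 HOX genes, 3 of 16 interferon response genes and 0 of 3 endothelial markers.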

How the results depend on the processing

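No paired analysis was possible because the deposited tables hold group means, and the library values recovered from them carry no replicate number. Over 131 named genes and 20 alternatives, 2607 differences were recomputed, of which 2433 kept their direction and side of the threshold, 174 kept their direction but were no longer called and 0 changed direction. Most of these genes were named for a large difference, so these counts do not describe all called genes. With array weights, the count of called differences was 5137 (2573 higher, 2564 lower). The p53-deleted response was called for 8323 genes and the p53 wild-type response for 8886 under these weights. Of genes with at least 5 in every group, 568 were then opposite, 351 lost and 294 gained. Of genes under 5 in some group, 55 were opposite, 105 lost and 77 gained. Without both p53 wild-type libraries that stand apart, an alternative fixed with earlier results known, 297 genes with at least 5 in every group were lost and 210 gained. Without a filter 121 genes with at least 5 in every group were opposite. Bounds of the classes mattered as well: with no response under 0.25, 109 were lost and 153 gained among genes with at least 5 in every group, and 24 lost and 30 gained under 5, and with a response of at least 2, 30 were lost and 56 gained. Of genes under 5 in some group, 31 were gained with a pseudocount of 0.5, 88 lost and 112 gained with a pseudocount of 5, 100 lost and 96 gained without a filter, 10 opposite, 12 lost and 7 gained with a minimum mean of 50, and 30 lost and 24 gained with voom. The cause of these shifts was not tested. With 1 library left out, called differences ran from 1520 (without p53-deleted H-Ras library C) to 2287, with 788 to 1230 higher and 732 to 1140 lower. Opposite genes then ran from 118 to 207 with at least 5 in every group and from 13 to 23 under 5, lost genes from 147 to 215 and from 40 to 52, and gained genes from 214 to 344 and from 31 to 48. Members changed as well. Of the 310 gained genes with at least 5 in every group, 189 to 264 kept their class and 209 to 281 stayed called for the difference. Of the 180 lost genes, 141 to 163 kept their class and 146 to 174 stayed called. The p53-deleted response was then called for 5009 to 6756 genes and the p53 wild-type response for 3555 to 5834. For genes under 5 in some group, the depth of these libraries limits the log2 values, as a difference of a few reads changes them.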
